A study of Mus musculus with 32 samples.

Results

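The matrix metalloproteinases (Mmp genes), the Adamts proteases and their tissue inhibitors (Timp genes) were followed across 32 RNA sequencing libraries of mouse models of high-grade serous ovarian carcinoma and normal reproductive tissue. Members were taken by gene symbol alone, as Mmp, Adamts or Timp followed by a number. The rule took 46 of the 55450 genes in the tables, namely 23 Mmp, 19 Adamts and 4 Timp genes. All mice were female, and 26 libraries came from tumours harvested at endpoint and 6 from normal tissue. A GEMM tumour arose in the genetically engineered mouse itself (12 libraries), and an allograft was grown in another animal after transfer (14 libraries). OSE-BPR began in the ovarian surface epithelium of FVB mice homozygous for floxed Brca1 (Brca1 fl/fl) and floxed Trp53 (Trp53 fl/fl) and carrying K18GT121 Tg/+, after adenovirus encoding Cre recombinase was placed beneath the ovarian bursa (5 allografts, 3 GEMM tumours). Ovgp1-BPR began in the oviduct of C57Bl/6 mice with Brca1 fl/fl, K18GT121 Tg/+, Ovgp1-CreERT2 Tg/+ and, by the sample labels, Trp53 KozR172H ki/+ (3 allografts, 3 GEMM tumours). The study's description instead lists Trp53 fl/fl for this model while also naming the mutation R172H, so its exact Trp53 genotype is uncertain. Pax8-BPR began in the oviduct of C57Bl/6 mice with Pax8-CreERT2 Tg/+ beside K18GT121 Tg/+, Trp53 fl/fl and Brca1 fl/fl (2 allografts, 4 GEMM tumours). Tamoxifen switched on Cre in secretory cells of the oviduct in both CreERT2 models. Ad-BPR began in the oviduct of C57Bl/6 mice with the same 3 alleles as OSE-BPR, after adenovirus encoding Cre was injected into the oviduct (4 allografts, 2 GEMM tumours). Normal oviduct and normal ovary were taken from the same 3 wild-type C57Bl/6 mice. Every tumour model thus carries homozygous floxed Brca1 and the K18GT121 transgene, in which a keratin 18 promoter drives a protein that inhibits Rb. Ages were not given, and the labels do not say which GEMM tumour a graft came from, so p-values measure the spread between these samples.

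Mmps and Adamts proteases are zinc enzymes that cut the proteins around cells. Collagenases open fibrillar collagen, gelatinases degrade the unwound chains and basement membrane collagen, stromelysins and matrilysin cut many matrix and surface proteins, and membrane-type Mmps act at the cell surface. Adamts proteases trim procollagen, cut the large proteoglycans versican and aggrecan, or act on microfibrils. Timps bind the active site of Mmps, and Timp3, which stays in the matrix, also blocks several Adamts enzymes. In the ovary and oviduct these enzymes take part in ovulation and tissue turnover, and in tumours many of them are made by fibroblasts, macrophages and neutrophils as well as by carcinoma cells. Several Mmp promoters carry a site for AP-1, the Fos and Jun transcription factors.

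Libraries held 13987123 to 20514825 assigned counts. Levels of a gene across libraries are given as CPM (counts scaled to library size with normalization factors), in replicate order, and levels of different genes are compared only as TPM, which allows for gene length. A count of 0 allows up to 0.14 to 0.219 CPM, depending on the library (3 counts, counting error only). Trp53 was at 8.4 to 43 CPM in the 20 OSE-BPR, Pax8-BPR and Ad-BPR tumours, at 101 to 157 CPM in the 6 Ovgp1-BPR tumours and at 83.4 to 120 CPM in the 6 normal libraries. Brca1 was at 17.1 to 70.6 CPM in the 26 tumours, at 2.03 to 5.05 CPM in normal oviduct and at 13.8 to 22.5 CPM in normal ovary. Gene totals of this kind mix reads from within and outside the floxed exons, so these levels do not show whether the floxed exons of Brca1 were lost. Epcam, an epithelial surface marker, was at 0.466 to 467 CPM in Ovgp1-BPR allografts and 3.63 to 200 CPM in Ovgp1-BPR GEMM tumours. It was at 394 to 1550 CPM in the other tumours, so Epcam matches the carcinoma label weakly in some Ovgp1-BPR libraries. Pax8 was at 112 to 152 CPM in Ovgp1-BPR allografts, 83.7 to 207 CPM in its GEMM tumours and 82.1 to 115 CPM in normal oviduct. Summed epithelial markers were 822 to 4750 TPM and 1020 to 3440 TPM in these Ovgp1-BPR groups, against 1590 to 1890 TPM in normal oviduct. Normal oviduct replicates 1, 2 and 3 had summed granulosa, theca and luteal markers of 979, 66.8 and 601 TPM, where tumours had at most 499 TPM and normal ovary 8230 to 8660 TPM, and results against oviduct are therefore also given without its replicates 1 and 3.

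The 46 genes lie on 17 chromosomes, and 10 Mmp genes sit side by side within 427.1 kb of chromosome 9 (chr9:7272514-7699585, GRCm38). Along the plus strand coordinates their order is Mmp13, Mmp12, Mmp1b, Mmp3, Mmp1a, Mmp10, Mmp8, Mmp27, Mmp20 and Mmp7. RefSeq promoters (GRCm38.p6) from 250 bases before to 50 bases after the start were matched for 32 of the 46 members. Motifs were searched only in the 250 bases before the start. A member counts if any of its listed starts has a match, while the percentages are over promoter entries. The AP-1 element TGANTCA, searched on both strands, was found in promoters of 8 of the 10 cluster genes (all but Mmp8 and Mmp27) and of 0 of the 22 other matched members, where 6.75% of all 32851 promoters held it. AGGAAG, the PEA3 element, was in 6 of the 10 (29.48% of all promoters), and TATAAA, the TATA box, in 7 of the 10 (12.37% of all promoters). No AP-1 match overlapped a match of the other motifs. Because Mmp13, Mmp12, Mmp3, Mmp10 and Mmp7 include the largest differences between tumour models, the 120 bases before their starts are printed, with the AP-1 match in capitals, and Mmp8 is printed as the cluster neighbour without a match. All are 5′ to 3′ on the plus strand, at chr9:7272394-7272513 (Mmp13), chr9:7347254-7347373 (Mmp12), chr9:7445702-7445821 (Mmp3), chr9:7502222-7502341 (Mmp10), chr9:7691970-7692089 (Mmp7) and chr9:7558309-7558428 (Mmp8). For Mmp12 and Mmp7 the match lies before 1 of 2 listed starts. In Mmp12 this is the downstream start, and the stretch before the other start (chr9:7344277-7344396) holds none.
Mmp13: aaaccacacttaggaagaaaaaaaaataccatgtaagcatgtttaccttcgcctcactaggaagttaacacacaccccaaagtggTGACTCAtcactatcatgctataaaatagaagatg
Mmp12: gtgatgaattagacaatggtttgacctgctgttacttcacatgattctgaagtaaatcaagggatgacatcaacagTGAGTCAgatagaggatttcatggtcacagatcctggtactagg
Mmp3: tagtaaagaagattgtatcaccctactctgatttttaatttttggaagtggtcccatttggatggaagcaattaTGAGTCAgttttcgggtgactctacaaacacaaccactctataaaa
Mmp10: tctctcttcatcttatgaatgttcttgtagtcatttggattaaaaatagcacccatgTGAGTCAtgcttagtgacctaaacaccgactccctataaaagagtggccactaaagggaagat
Mmp7: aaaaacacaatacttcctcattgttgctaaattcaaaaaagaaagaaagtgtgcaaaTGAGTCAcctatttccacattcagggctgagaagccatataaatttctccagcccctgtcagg
Mmp8: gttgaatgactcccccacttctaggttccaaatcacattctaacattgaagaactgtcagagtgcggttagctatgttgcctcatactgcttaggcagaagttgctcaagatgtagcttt
The matched stretch begins 35 bases before the start in Mmp13, 44 in Mmp12, 46 in Mmp3 and 63 in Mmp10 and Mmp7. Mmp1a, Mmp1b and Mmp20 also hold a match and reached at most 0, 0.171 and 0.682 CPM over all libraries. A match describes these letters, not a bound site, and its part in the levels was not tested.

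Transcripts of the Mmp family were lowest in OSE-BPR tumours and highest in Ad-BPR tumours and in Pax8-BPR GEMM tumours. Summed over the 23 Mmp genes they came to 273 to 475 TPM in OSE-BPR allografts, 305 to 608 TPM in OSE-BPR GEMM tumours, 586 to 983 TPM in Ovgp1-BPR allografts and 536 to 1070 TPM in Ovgp1-BPR GEMM tumours. Pax8-BPR allografts had 534 and 823 TPM, and Pax8-BPR GEMM tumours 1725, 1187, 1096 and 1297 TPM. Ad-BPR allografts had 1507, 2401, 986.4 and 1273 TPM, Ad-BPR GEMM tumours 1214 and 2196 TPM, normal oviduct 495 to 693 TPM and normal ovary 675 to 776 TPM. Mmp14 took the largest share of this sum in every group (25.5% to 49.1%) except normal ovary, where Mmp2 led with 31.7%. Mmp7 ranked next in Ad-BPR GEMM tumours (16.7%), and Mmp23 next in both Ovgp1-BPR groups (25.2% in allografts, 27.4% in GEMM tumours).

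**Figure D1:**
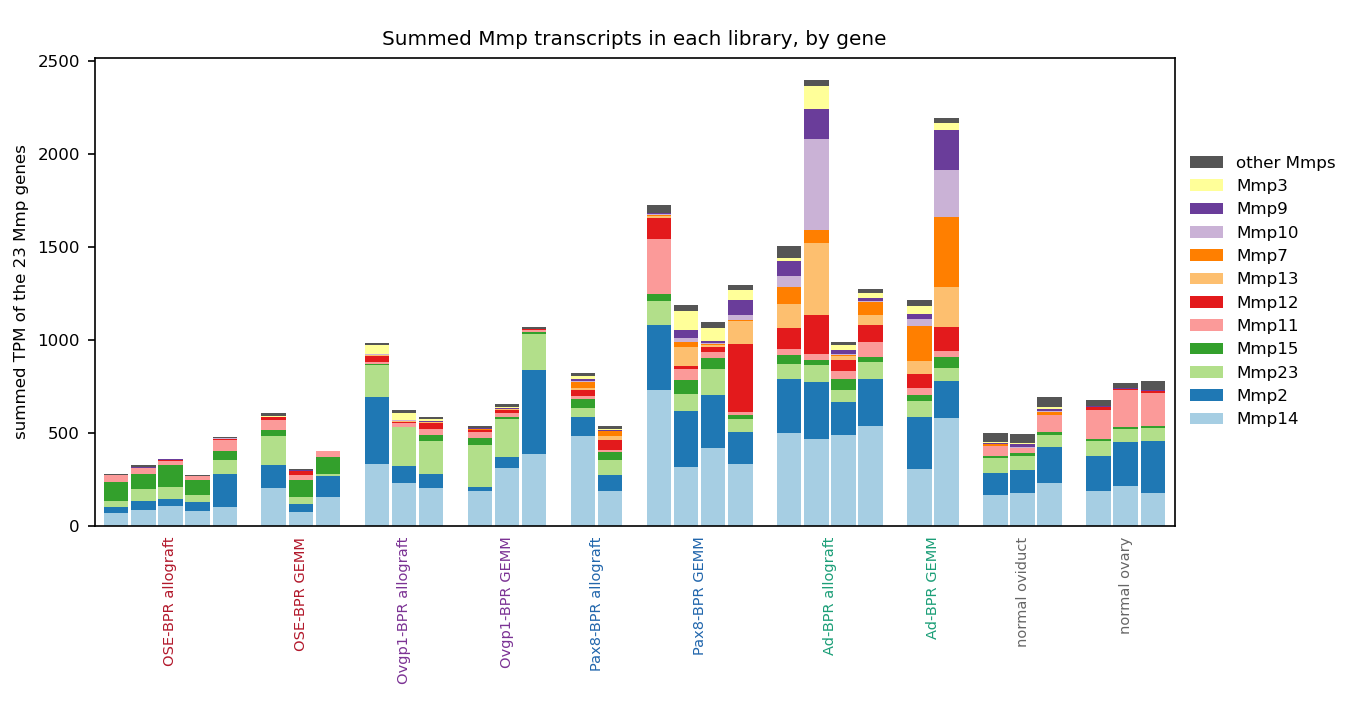
Summed TPM of the 23 Mmp genes (y axis) in each of the 32 libraries (1 bar each), stacked by gene and grouped by model. The 8 OSE-BPR bars reach at most 608 TPM, while the bars of Ad-BPR GEMM tumours reach 1214 and 2196 TPM.

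The inhibitors varied less than the enzymes. Summed over the 4 Timp genes, means were 474 ± 91.2 TPM in OSE-BPR allografts (SD, n = 5), 426 ± 70.6 TPM in OSE-BPR GEMM tumours (n = 3), 581 ± 114 TPM in Ovgp1-BPR allografts (n = 3) and 676 ± 244 TPM in Ovgp1-BPR GEMM tumours (n = 3). Pax8-BPR averaged 618 ± 132 TPM in allografts (n = 2) and 786 ± 295 TPM in GEMM tumours (n = 4), Ad-BPR 753 ± 136 TPM in allografts (n = 4) and 502 ± 7.38 TPM in GEMM tumours (n = 2), and normal oviduct and ovary 483 ± 62.5 and 590 ± 151 TPM (n = 3 each). Mmp TPM per Timp TPM averaged 0.73 in OSE-BPR allografts, 1.02 in OSE-BPR GEMM tumours, 1.29 and 1.23 in allografts and GEMM tumours of Ovgp1-BPR, 1.09 and 1.89 in those of Pax8-BPR, and 2.18 and 3.39 in those of Ad-BPR. Normal oviduct averaged 1.17 and normal ovary 1.3. The ratio ranged from 1.21 to 4.33 across Ad-BPR tumours and from 0.559 to 1.22 across OSE-BPR tumours, so the 2 models met only at their edges. Adamts transcripts were led by Adamts10, which acts on fibrillin microfibrils, in OSE-BPR, Ovgp1-BPR and both normal tissues (29.5% to 43.2% of the Adamts sum), and by Adamts1, which cuts versican, in Pax8-BPR and Ad-BPR (36.8% to 48.3%). These are ratios of transcripts, not of protein or of enzyme activity.

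**Figure D2:**
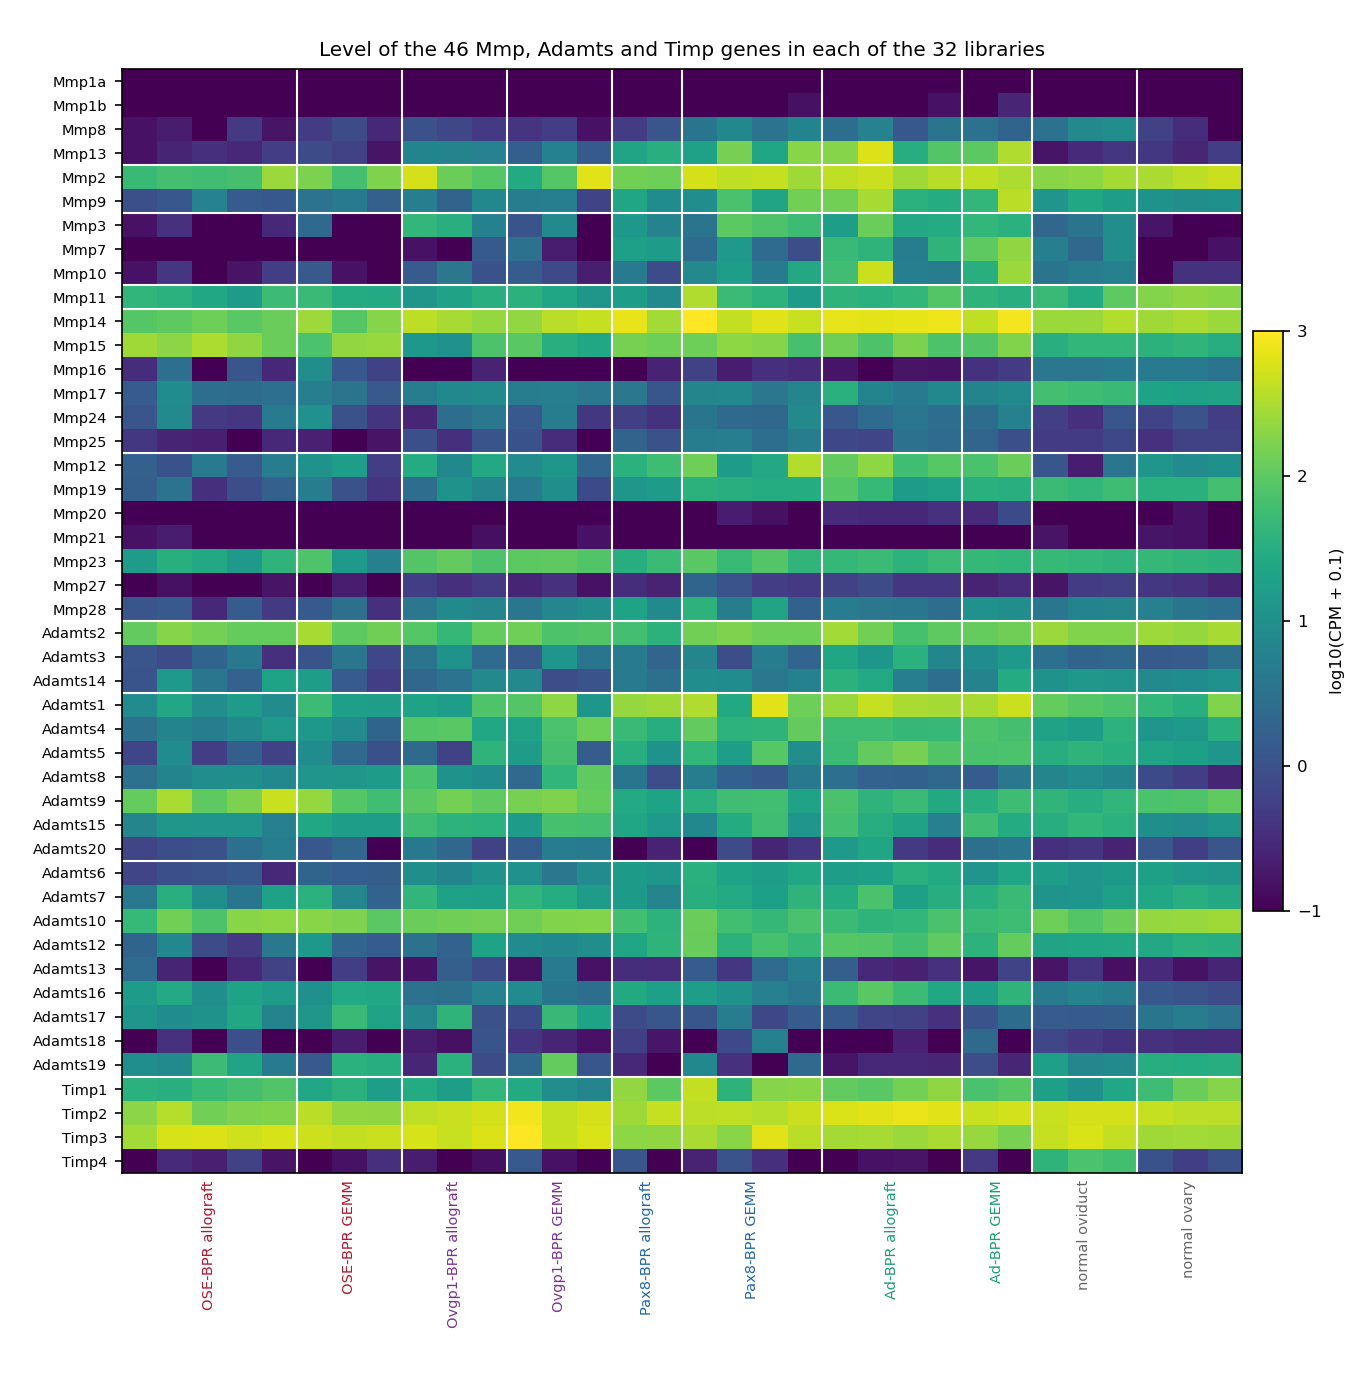
Level of each of the 46 members (rows, by role) in each of the 32 libraries (columns, by group), coloured by log10(CPM + 0.1). The columns of Pax8-BPR and Ad-BPR are brighter than those of OSE-BPR for Mmp13, Mmp3, Mmp7 and Mmp12, while Adamts9, Adamts10 and Adamts17 are mostly darker.

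Mmp13, collagenase 3, is the main interstitial collagenase of rodents. OSE-BPR allografts had 0.0574, 0.162, 0.252, 0.193 and 0.434 CPM of Mmp13, and OSE-BPR GEMM tumours had 0.737, 0.494 and 0.061 CPM. Ovgp1-BPR allografts had 6.22, 6.16 and 5.79 CPM of it, and Ovgp1-BPR GEMM tumours 1.54, 5.62 and 1.25 CPM. None of the 8 OSE-BPR tumours reached 1 CPM, and the 6 Ovgp1-BPR tumours lay above all of them. Mmp13 was at 21.5 and 32.6 CPM in Pax8-BPR allografts and at 19.5, 149, 22.3 and 193 CPM in Pax8-BPR GEMM tumours. Ad-BPR allografts had 187, 605, 30.8 and 84.6 CPM, and Ad-BPR GEMM tumours 98.7 and 336 CPM. Mmp13 was at 0.06, 0.208 and 0.337 CPM in normal oviduct, against 0.347, 0.171 and 0.438 CPM in normal ovary. The 12 Pax8-BPR and Ad-BPR tumours, at 19.5 CPM or more, lay above the other 20 libraries. Mmp8, the neutrophil collagenase, had 0 to 0.714 CPM in OSE-BPR tumours, 0.0566 to 0.896 CPM in Ovgp1-BPR tumours, 0.411 to 7.27 CPM in Pax8-BPR and Ad-BPR tumours and up to 9.53 CPM in normal oviduct replicate 3. Mmp1a had no count in any library and Mmp1b reached 0.171 CPM at most.

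Mmp2, gelatinase A, is activated at the cell surface by Mmp14 together with Timp2. Mmp2 was at 50, 67.2, 59.2, 65.7 and 247 CPM in allografts of OSE-BPR and at 165, 64.6 and 169 CPM in its GEMM tumours. Mmp2 measured 551, 127 and 86.7 CPM in Ovgp1-BPR allografts and 27.9, 86.9 and 650 CPM in Ovgp1-BPR GEMM tumours. Replicate 5 stood apart from the other 4 OSE-BPR allografts, and Ovgp1-BPR spread from 27.9 to 650 CPM. Pax8-BPR gave 143 and 132 CPM in allografts and 558, 416, 447 and 271 CPM in GEMM tumours. Mmp2 measured 412, 485, 270 and 368 CPM in Ad-BPR allografts and 420 and 317 CPM in Ad-BPR GEMM tumours. Mmp2 in normal oviduct measured 194, 206 and 287 CPM, against 312, 406 and 470 CPM in normal ovary. The Ad-BPR tumours and the Pax8-BPR GEMM tumours, at 270 CPM or more, lay above all OSE-BPR tumours and overlapped normal oviduct and ovary.

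Mmp9, gelatinase B, is released by neutrophils and macrophages among other cells. Mmp9 stood at 0.86, 1.13, 5.92, 1.29 and 1.18 CPM in OSE-BPR allografts and at 3.28, 4.39 and 1.59 CPM in OSE-BPR GEMM tumours. Mmp9 in Ovgp1-BPR was at 5.04, 1.81 and 7.15 CPM in allografts and at 4.71, 5.24 and 0.566 CPM in GEMM tumours. No OSE-BPR or Ovgp1-BPR tumour exceeded 7.15 CPM, and the ranges of both models overlapped. Pax8-BPR allografts had 23.5 and 8.83 CPM of Mmp9 and Pax8-BPR GEMM tumours 8.91, 70.8, 21.4 and 142 CPM. Mmp9 in Ad-BPR was at 140, 298, 36 and 30.2 CPM in allografts and at 44.1 and 392 CPM in GEMM tumours. Normal oviduct had 12, 24.8 and 17.1 CPM of Mmp9, against 11, 9.26 and 10.1 CPM in normal ovary. Every Pax8-BPR and Ad-BPR tumour and every normal library, at 8.83 CPM or more, lay above every OSE-BPR and Ovgp1-BPR tumour.

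Mmp3, stromelysin 1, cuts proteoglycans and other matrix proteins and activates other Mmps. OSE-BPR allografts had 0.0574, 0.27, 0, 0 and 0.186 CPM of Mmp3, and OSE-BPR GEMM tumours had 2.21, 0 and 0 CPM. Ovgp1-BPR allografts had 45.1, 33.8 and 5.7 CPM of it, and Ovgp1-BPR GEMM tumours 1.01, 7.75 and 0 CPM. The 3 Ovgp1-BPR allografts lay above all OSE-BPR tumours, while the Ovgp1-BPR GEMM tumours overlapped them. Mmp3 was at 13.6 and 6.13 CPM in Pax8-BPR allografts and at 3.39, 96.9, 76.6 and 55.4 CPM in Pax8-BPR GEMM tumours. Ad-BPR allografts had 16.8, 128, 25.6 and 29.3 CPM, and Ad-BPR GEMM tumours 43.9 and 36.2 CPM. Mmp3 was at 1.98, 3.38 and 9.53 CPM in normal oviduct, against 0.0693, 0 and 0 CPM in normal ovary. The 12 Pax8-BPR and Ad-BPR tumours, at 3.39 CPM or more, lay above the 8 OSE-BPR tumours, and oviduct lay above ovary.

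Mmp7, matrilysin, is a small Mmp made mainly by epithelial cells. Mmp7 was at 0, 0, 0, 0 and 0 CPM in allografts of OSE-BPR and at 0, 0 and 0 CPM in its GEMM tumours. Mmp7 measured 0.056, 0 and 1.26 CPM in Ovgp1-BPR allografts and 3.02, 0.109 and 0 CPM in Ovgp1-BPR GEMM tumours. No count was assigned to Mmp7 in any of the 8 OSE-BPR tumours, and in Ovgp1-BPR only GEMM replicate 1 and allograft replicate 3 exceeded 1 CPM. Pax8-BPR gave 18.1 and 15.8 CPM in allografts and 2.4, 13.8, 2.39 and 0.806 CPM in GEMM tumours. Mmp7 measured 50.4, 40.4, 4.83 and 40.4 CPM in Ad-BPR allografts and 102 and 214 CPM in Ad-BPR GEMM tumours. Mmp7 in normal oviduct measured 5.22, 2.13 and 9.48 CPM, against 0, 0 and 0.0548 CPM in normal ovary. The Ad-BPR GEMM tumours were highest, Ad-BPR allograft replicate 3 stood below the other 3 grafts, and oviduct lay above ovary.

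Mmp10, stromelysin 2, is a close relative of Mmp3 made largely by epithelium and macrophages. Mmp10 stood at 0.0574, 0.323, 0, 0.0644 and 0.434 CPM in OSE-BPR allografts and at 1.21, 0.0549 and 0 CPM in OSE-BPR GEMM tumours. Mmp10 in Ovgp1-BPR was at 1.29, 3.72 and 0.935 CPM in allografts and at 1.38, 0.655 and 0.113 CPM in GEMM tumours. Ovgp1-BPR allografts lay above all 5 OSE-BPR allografts, and the GEMM tumours of both models overlapped. Pax8-BPR allografts had 4.58 and 0.73 CPM of Mmp10 and Pax8-BPR GEMM tumours 7.49, 17.2, 4.19 and 25.9 CPM. Mmp10 in Ad-BPR was at 58.9, 482, 5.21 and 4.6 CPM in allografts and at 33.7 and 246 CPM in GEMM tumours. Normal oviduct had 3.36, 4.89 and 5.53 CPM of Mmp10, against 0, 0.286 and 0.274 CPM in normal ovary. Ad-BPR allografts spread from 4.6 to 482 CPM, and Ad-BPR GEMM tumours lay above all Pax8-BPR tumours.

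Mmp12, macrophage elastase, degrades elastin. OSE-BPR allografts had 1.61, 0.916, 4.15, 1.29 and 4.65 CPM of Mmp12, and OSE-BPR GEMM tumours had 10.7, 16.5 and 0.427 CPM. Ovgp1-BPR allografts had 29.1, 7.24 and 26.6 CPM of it, and Ovgp1-BPR GEMM tumours 8.47, 13.2 and 1.93 CPM. Ovgp1-BPR allografts lay above all OSE-BPR allografts, and the GEMM tumours of both models overlapped. Mmp12 was at 36.2 and 57.5 CPM in Pax8-BPR allografts and at 132, 15.4, 25.8 and 345 CPM in Pax8-BPR GEMM tumours. Ad-BPR allografts had 109, 210, 60.2 and 91.5 CPM, and Ad-BPR GEMM tumours 69.9 and 121 CPM. Mmp12 was at 1.08, 0.104 and 3.61 CPM in normal oviduct, against 12.1, 8.4 and 9.97 CPM in normal ovary. The 6 Ad-BPR tumours, at 60.2 CPM or more, lay above all OSE-BPR, Ovgp1-BPR and normal libraries, while Pax8-BPR GEMM tumours spread from 15.4 to 345 CPM, and oviduct lay below ovary.

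**Figure D3:**
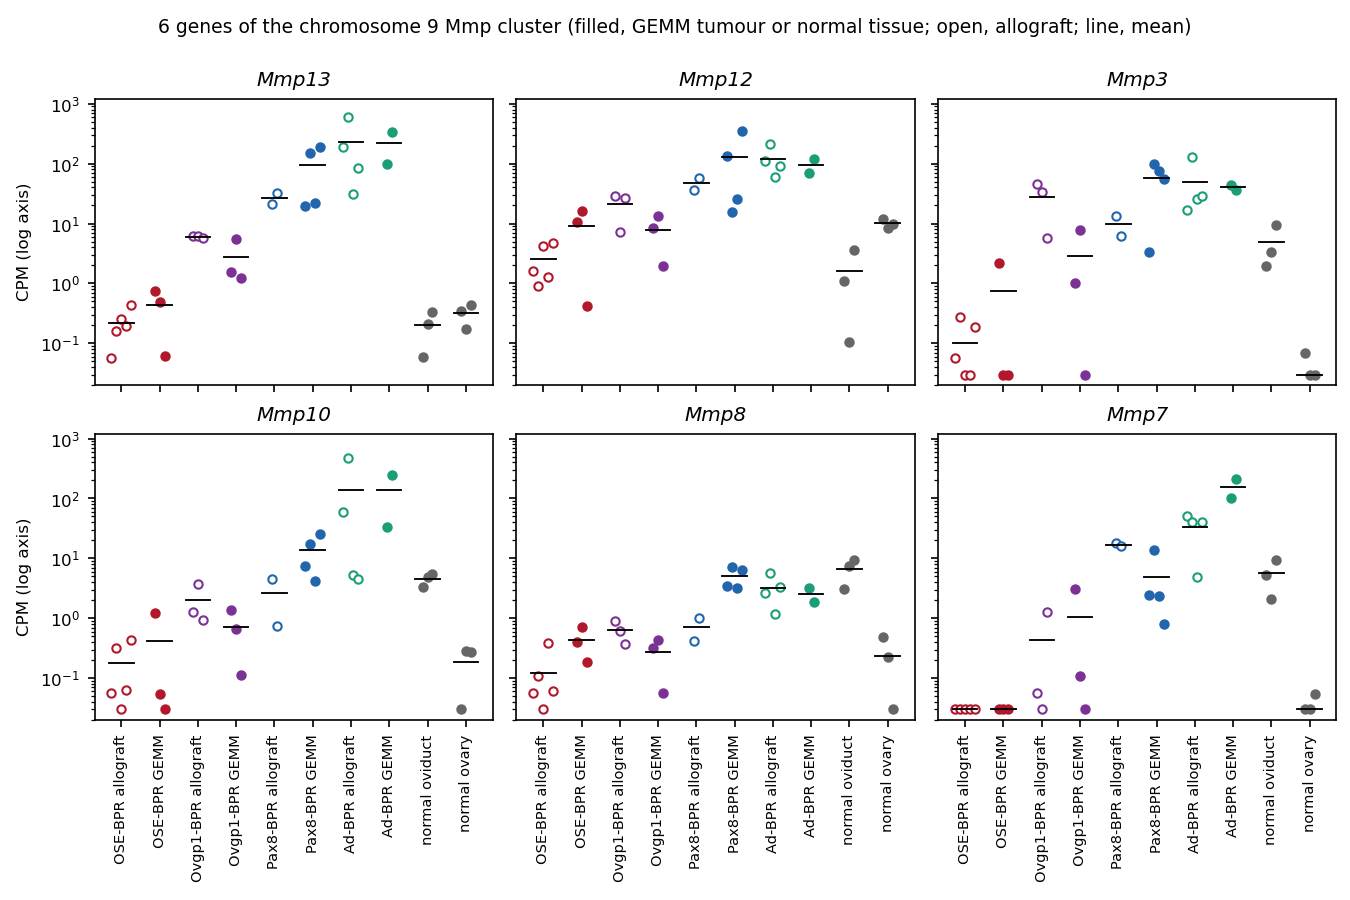
CPM on a log axis (y) of 6 genes of the chromosome 9 cluster in each library, by group (x), with GEMM tumours and normal tissue filled, allografts open and the group mean as a line. For Mmp13 the Pax8-BPR and Ad-BPR points sit at 19.5 CPM or more and the OSE-BPR points below 1 CPM.

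Mmp11, a furin-activated stromelysin, is typical of stromal fibroblasts. Mmp11 was at 43.3, 35.9, 24.9, 16.4 and 54.4 CPM in allografts of OSE-BPR and at 51.4, 29.3 and 27.5 CPM in its GEMM tumours. Mmp11 measured 12.8, 20.4 and 33 CPM in Ovgp1-BPR allografts and 37.1, 22.4 and 13 CPM in Ovgp1-BPR GEMM tumours. The ranges of OSE-BPR and Ovgp1-BPR overlapped. Pax8-BPR gave 17 and 7.95 CPM in allografts and 334, 54, 38.4 and 16.1 CPM in GEMM tumours. Mmp11 measured 39.8, 35.2, 45 and 84.3 CPM in Ad-BPR allografts and 40.1 and 31.7 CPM in Ad-BPR GEMM tumours. Mmp11 in normal oviduct measured 51.8, 27.9 and 101 CPM, against 182, 213 and 194 CPM in normal ovary. Normal ovary lay above every other library except Pax8-BPR GEMM replicate 1.

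Mmp14, the best known membrane-type Mmp, cuts fibrillar collagen and activates pro-Mmp2. Mmp14 stood at 88.6, 103, 129, 94 and 123 CPM in OSE-BPR allografts and at 257, 89.4 and 189 CPM in OSE-BPR GEMM tumours. Mmp14 in Ovgp1-BPR was at 395, 295 and 232 CPM in allografts and at 223, 380 and 443 CPM in GEMM tumours. The 6 Ovgp1-BPR tumours lay above all 5 OSE-BPR allografts and overlapped the OSE-BPR GEMM tumours. Pax8-BPR allografts had 741 and 282 CPM of Mmp14 and Pax8-BPR GEMM tumours 1302, 435, 641 and 460 CPM. Mmp14 in Ad-BPR was at 707, 678, 707 and 786 CPM in allografts and at 415 and 844 CPM in GEMM tumours. Normal oviduct had 252, 254 and 343 CPM of Mmp14, against 265, 311 and 254 CPM in normal ovary. The 12 Pax8-BPR and Ad-BPR tumours, at 282 CPM or more, lay above all 8 OSE-BPR tumours, and only Pax8-BPR allograft replicate 2 lay within the range of normal tissue.

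Mmp15 is another membrane-type Mmp. OSE-BPR allografts had 270, 198, 319, 216 and 125 CPM of Mmp15, and OSE-BPR GEMM tumours had 72.3, 228 and 240 CPM. Ovgp1-BPR allografts had 13.3, 10.4 and 77.1 CPM of it, and Ovgp1-BPR GEMM tumours 94.5, 31.8 and 24 CPM. OSE-BPR allografts lay above all Ovgp1-BPR tumours, and OSE-BPR GEMM replicate 1 lay among them. Mmp15 was at 151 and 129 CPM in Pax8-BPR allografts and at 129, 210, 188 and 68.8 CPM in Pax8-BPR GEMM tumours. Ad-BPR allografts had 136, 76.7, 164 and 76.3 CPM, and Ad-BPR GEMM tumours 80.7 and 174 CPM. Mmp15 was at 32.8, 43.7 and 44.1 CPM in normal oviduct, against 37.7, 41.2 and 30.5 CPM in normal ovary. Pax8-BPR and Ad-BPR tumours, at 68.8 CPM or more, lay above the 6 normal libraries and overlapped OSE-BPR.

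The other membrane-type Mmps were lower and differed in pattern. Mmp16 was at 0 to 9.25 CPM in OSE-BPR tumours, 0 to 0.14 CPM in Ovgp1-BPR tumours, 0 to 0.495 CPM in Pax8-BPR and Ad-BPR tumours and 3.34 to 4.58 CPM in normal libraries. Mmp17, which is anchored by a lipid, was at 1.22 to 8.68 CPM in OSE-BPR tumours, 3.74 to 8.18 CPM in Ovgp1-BPR tumours, 1.09 to 34.7 CPM in Pax8-BPR and Ad-BPR tumours and 19.7 to 63.8 CPM in normal libraries. For Mmp16 only OSE-BPR GEMM replicate 1 exceeded the normal libraries and all other tumours lay below them, and for Mmp17 all tumours but Ad-BPR allograft replicate 1 lay below them. Mmp24 stayed within 0.168 to 10.3 CPM in tumours and 0.26 to 1.06 CPM in normal libraries. Mmp25, also lipid-anchored and typical of neutrophils, reached 4.96 CPM in Pax8-BPR GEMM tumours and at most 0.344 CPM in OSE-BPR. Mmp19 was at 0.252 to 4.62 CPM in OSE-BPR, 0.68 to 11.2 CPM in Ovgp1-BPR, 13 to 86.7 CPM in Pax8-BPR and Ad-BPR and 34.1 to 63.8 CPM in normal libraries, with no overlap between OSE-BPR and the last 2. Mmp23 ran from 5.49 to 110 CPM over all libraries, Mmp28 (epilysin) from 0.189 to 38.2 CPM and Mmp27 from 0 to 1.84 CPM. Mmp20, the enamel protease, reached 0.682 CPM and Mmp21 0.108 CPM.

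Adamts2 removes the amino-terminal propeptide of fibrillar procollagens. Adamts2 was at 109, 187, 147, 112 and 114 CPM in allografts of OSE-BPR and at 301, 100 and 136 CPM in its GEMM tumours. Adamts2 measured 88.2, 45.6 and 112 CPM in Ovgp1-BPR allografts and 130, 75.8 and 80.6 CPM in Ovgp1-BPR GEMM tumours. The ranges of OSE-BPR and Ovgp1-BPR overlapped. Pax8-BPR gave 64.3 and 37.1 CPM in allografts and 140, 167, 130 and 133 CPM in GEMM tumours. Adamts2 measured 276, 141, 69.1 and 103 CPM in Ad-BPR allografts and 112 and 137 CPM in Ad-BPR GEMM tumours. Adamts2 in normal oviduct measured 247, 176 and 177 CPM, against 256, 236 and 303 CPM in normal ovary. Pax8-BPR allografts lay below the 4 Pax8-BPR GEMM tumours, and oviduct and ovary overlapped. The related procollagen proteases ran from 0.248 to 35.3 CPM (Adamts3) and 0.427 to 37.4 CPM (Adamts14) over all libraries.

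Adamts1 cuts versican and is induced in the follicle at ovulation. Adamts1 stood at 8.43, 24.5, 9.32, 16.4 and 8.5 CPM in OSE-BPR allografts and at 55, 18.2 and 17.5 CPM in OSE-BPR GEMM tumours. Adamts1 in Ovgp1-BPR was at 20.8, 16.5 and 79.8 CPM in allografts and at 86.1, 210 and 12.6 CPM in GEMM tumours. The ranges of both models overlapped. Pax8-BPR allografts had 231 and 273 CPM of Adamts1 and Pax8-BPR GEMM tumours 337, 26.4, 660 and 133 CPM. Adamts1 in Ad-BPR was at 242, 442, 313 and 291 CPM in allografts and at 299 and 483 CPM in GEMM tumours. Normal oviduct had 112, 89.4 and 73 CPM of Adamts1, against 45.2, 33.3 and 177 CPM in normal ovary. The 6 Ad-BPR tumours and both Pax8-BPR allografts, at 231 CPM or more, lay above all OSE-BPR, Ovgp1-BPR and normal libraries, and Pax8-BPR GEMM tumours spread from 26.4 to 660 CPM.

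Adamts4 is an aggrecanase. OSE-BPR allografts had 2.98, 6.31, 4.78, 8.24 and 14.7 CPM of Adamts4, and OSE-BPR GEMM tumours had 13.6, 8.46 and 1.83 CPM. Ovgp1-BPR allografts had 87.3, 95.1 and 23.9 CPM of it, and Ovgp1-BPR GEMM tumours 20.3, 73 and 131 CPM. No OSE-BPR tumour exceeded 14.7 CPM, and the 6 Ovgp1-BPR tumours all stood at 20.3 CPM or more. Adamts4 was at 50.6 and 30.9 CPM in Pax8-BPR allografts and at 108, 38.6, 40.3 and 110 CPM in Pax8-BPR GEMM tumours. Ad-BPR allografts had 56.8, 57.8, 46.6 and 47.1 CPM, and Ad-BPR GEMM tumours 79 and 66.4 CPM. Adamts4 was at 20, 16.6 and 37.9 CPM in normal oviduct, against 12.7, 13.9 and 33.5 CPM in normal ovary. All 18 oviduct-origin tumours lay above the 8 OSE-BPR tumours, and the 6 Ad-BPR tumours also lay above the 6 normal libraries.

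Adamts5 is the main aggrecanase of mouse cartilage and also cuts versican. Adamts5 was at 0.574, 8.57, 0.441, 1.55 and 0.496 CPM in allografts of OSE-BPR and at 8.65, 2.25 and 0.854 CPM in its GEMM tumours. Adamts5 measured 2.3, 0.517 and 40 CPM in Ovgp1-BPR allografts and 16.4, 66.9 and 1.36 CPM in Ovgp1-BPR GEMM tumours. Ovgp1-BPR spread from 0.517 to 66.9 CPM and overlapped OSE-BPR. Pax8-BPR gave 32.2 and 10.7 CPM in allografts and 44.8, 16.6, 90 and 9.24 CPM in GEMM tumours. Adamts5 measured 52.9, 111, 149 and 82.9 CPM in Ad-BPR allografts and 70.9 and 72.8 CPM in Ad-BPR GEMM tumours. Adamts5 in normal oviduct measured 30.9, 40.5 and 32.3 CPM, against 21.5, 19 and 12.6 CPM in normal ovary. The 12 Pax8-BPR and Ad-BPR tumours lay above all OSE-BPR tumours, the Ad-BPR tumours also above all normal libraries, and oviduct above ovary.

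Adamts9 cuts versican. Adamts9 stood at 112, 308, 101, 162 and 459 CPM in OSE-BPR allografts and at 233, 89.3 and 59.4 CPM in OSE-BPR GEMM tumours. Adamts9 in Ovgp1-BPR was at 94.3, 148 and 106 CPM in allografts and at 151, 168 and 114 CPM in GEMM tumours. The ranges of both models overlapped. Pax8-BPR allografts had 27.8 and 20.9 CPM of Adamts9 and Pax8-BPR GEMM tumours 34.7, 60.1, 60.8 and 20.3 CPM. Adamts9 in Ad-BPR was at 70.2, 39.7, 53.3 and 26.5 CPM in allografts and at 32.4 and 56.4 CPM in GEMM tumours. Normal oviduct had 40.8, 31.3 and 42.6 CPM of Adamts9, against 73.2, 80.4 and 106 CPM in normal ovary. No Pax8-BPR or Ad-BPR tumour exceeded 70.2 CPM, and of the 14 OSE-BPR and Ovgp1-BPR tumours only OSE-BPR GEMM replicate 3 lay within their range. Adamts8, Adamts15 and Adamts20 complete this group. Adamts15 was at 5.4 to 69.1 CPM over all libraries, and Adamts20 at 0 to 23.2 CPM with its highest value in Ad-BPR allograft replicate 2. Adamts8 is given with Ovgp1-BPR.

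Adamts12, like Adamts7, cuts the cartilage protein COMP. OSE-BPR allografts had 1.84, 7.17, 0.755, 0.386 and 3.91 CPM of Adamts12, and OSE-BPR GEMM tumours had 13.3, 1.92 and 1.34 CPM. Ovgp1-BPR allografts had 2.97, 1.71 and 21 CPM of it, and Ovgp1-BPR GEMM tumours 8.42, 7.2 and 9.52 CPM. The ranges of both models overlapped. Adamts12 was at 23 and 39.5 CPM in Pax8-BPR allografts and at 116, 37.6, 68.3 and 45.9 CPM in Pax8-BPR GEMM tumours. Ad-BPR allografts had 87.2, 86, 62.1 and 105 CPM, and Ad-BPR GEMM tumours 38.4 and 113 CPM. Adamts12 was at 21.3, 22.1 and 25 CPM in normal oviduct, against 26.1, 34 and 30.9 CPM in normal ovary. The 12 Pax8-BPR and Ad-BPR tumours, at 23 CPM or more, lay above the 14 OSE-BPR and Ovgp1-BPR tumours. Adamts6, which acts on microfibrils, was at 0.186 to 1.88 CPM in OSE-BPR, 3.82 to 11.4 CPM in Ovgp1-BPR, 12.2 to 34.5 CPM in Pax8-BPR and Ad-BPR and 12.6 to 18.5 CPM in normal libraries, and the 8 OSE-BPR tumours lay below the other 24 libraries. Adamts10 was at 48.4 to 207 CPM in OSE-BPR, 127 to 180 CPM in Ovgp1-BPR, 37.8 to 121 CPM in Pax8-BPR and Ad-BPR and 85.4 to 265 CPM in normal libraries. Adamts16 was at 9.63 to 27.5 CPM in OSE-BPR, 2.72 to 8.53 CPM in Ovgp1-BPR, 3.87 to 93.6 CPM in Pax8-BPR and Ad-BPR and 0.712 to 6.13 CPM in normal libraries. Over all libraries Adamts7 ran from 1.71 to 71.3 CPM, Adamts13, the von Willebrand factor protease, from 0 to 5 CPM, and Adamts18 from 0 to 5.67 CPM.

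Timp1 is the secreted inhibitor most often induced in inflamed and wounded tissue. Timp1 was at 35.2, 32.7, 49.4, 65.7 and 81.9 CPM in allografts of OSE-BPR and at 23.8, 37.2 and 16.8 CPM in its GEMM tumours. Timp1 measured 28.8, 17.6 and 44.2 CPM in Ovgp1-BPR allografts and 27.4, 9.28 and 6.57 CPM in Ovgp1-BPR GEMM tumours. Ovgp1-BPR GEMM replicates 2 and 3 were the lowest of all 32 libraries. Pax8-BPR gave 227 and 99.7 CPM in allografts and 422, 38.1, 189 and 193 CPM in GEMM tumours. Timp1 measured 111, 95.3, 148 and 215 CPM in Ad-BPR allografts and 70.6 and 91.8 CPM in Ad-BPR GEMM tumours. Timp1 in normal oviduct measured 18.3, 10 and 24.4 CPM, against 56.8, 128 and 189 CPM in normal ovary. Pax8-BPR and Ad-BPR tumours, at 38.1 CPM or more, lay above normal oviduct and above the Ovgp1-BPR GEMM tumours, and oviduct lay below ovary.

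Timp2 inhibits Mmps and takes part in pro-Mmp2 activation. Timp2 stood at 204, 353, 140, 170 and 173 CPM in OSE-BPR allografts and at 381, 225 and 218 CPM in OSE-BPR GEMM tumours. Timp2 in Ovgp1-BPR was at 411, 456 and 547 CPM in allografts and at 809, 439 and 547 CPM in GEMM tumours. No OSE-BPR tumour exceeded 381 CPM, and the 6 Ovgp1-BPR tumours stood at 411 CPM or more. Pax8-BPR allografts had 271 and 445 CPM of Timp2 and Pax8-BPR GEMM tumours 395, 413, 354 and 481 CPM. Timp2 in Ad-BPR was at 585, 673, 768 and 670 CPM in allografts and at 466 and 524 CPM in GEMM tumours. Normal oviduct had 463, 558 and 560 CPM of Timp2, against 441, 396 and 398 CPM in normal ovary. The 6 Ad-BPR tumours lay above all OSE-BPR tumours and normal ovary, and Pax8-BPR overlapped OSE-BPR.

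Timp3 is held in the matrix and inhibits aggrecanases as well as Mmps. OSE-BPR allografts had 282, 580, 614, 512 and 565 CPM of Timp3, and OSE-BPR GEMM tumours had 488, 427 and 478 CPM. Ovgp1-BPR allografts had 577, 462 and 624 CPM of it, and Ovgp1-BPR GEMM tumours 1030, 453 and 597 CPM. OSE-BPR allograft replicate 1 stood below the other 4. Timp3 was at 210 and 219 CPM in Pax8-BPR allografts and at 311, 191, 666 and 388 CPM in Pax8-BPR GEMM tumours. Ad-BPR allografts had 291, 304, 254 and 308 CPM, and Ad-BPR GEMM tumours 242 and 155 CPM. Timp3 was at 451, 596 and 423 CPM in normal oviduct, against 267, 279 and 268 CPM in normal ovary. All Ad-BPR and Pax8-BPR tumours except Pax8-BPR GEMM replicate 3 lay below the 6 Ovgp1-BPR tumours, and oviduct lay above ovary. Its exons overlap Syn3 on the opposite strand by 1733 bases, and reads of the pair cannot be told apart if the counting ignored strand.

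Timp4 is a secreted inhibitor of restricted tissue range. Timp4 was at 0, 0.216, 0.126, 0.515 and 0.0621 CPM in allografts of OSE-BPR and at 0, 0.0549 and 0.244 CPM in its GEMM tumours. Timp4 measured 0.112, 0 and 0.0467 CPM in Ovgp1-BPR allografts and 1.27, 0.0546 and 0 CPM in Ovgp1-BPR GEMM tumours. None of these tumours exceeded 1.27 CPM. Pax8-BPR gave 1.06 and 0 CPM in allografts and 0.141, 0.937, 0.265 and 0 CPM in GEMM tumours. Timp4 measured 0, 0.0591, 0.0643 and 0 CPM in Ad-BPR allografts and 0.356 and 0 CPM in Ad-BPR GEMM tumours. Timp4 in normal oviduct measured 39.9, 74.2 and 62.1 CPM, against 0.901, 0.457 and 0.876 CPM in normal ovary. Normal oviduct lay above the other 29 libraries.

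**Figure D4:**
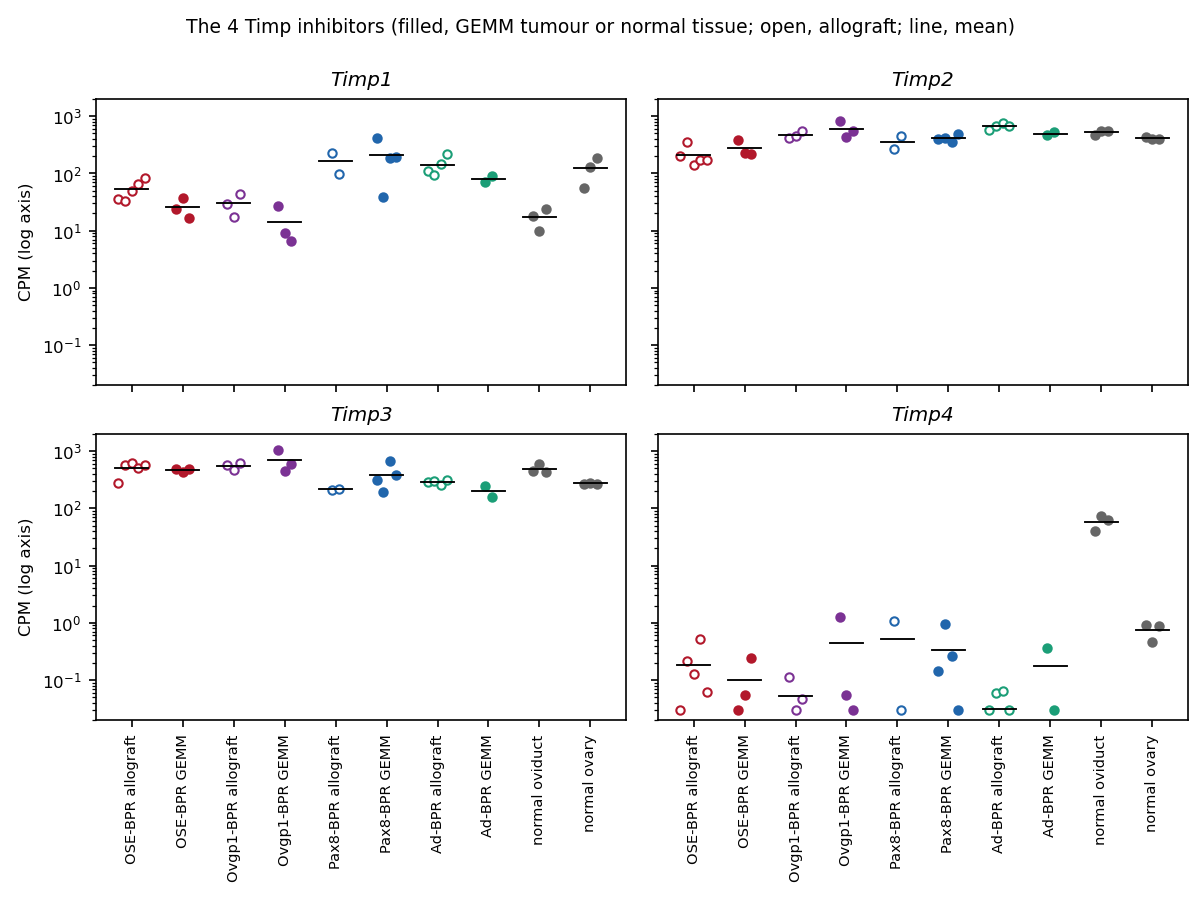
CPM on a log axis (y) of the 4 Timp genes in each library, by group (x), with GEMM tumours and normal tissue filled, allografts open and the group mean as a line. Timp4 stands at 39.9 to 74.2 CPM in normal oviduct and at 1.27 CPM or less in every tumour.

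Differences between groups were tested over all genes with edgeR's quasi-likelihood test and called at a Benjamini-Hochberg adjusted p < 0.05. Fold changes are log2 ± SE, and the range after an adjusted p covers the alternative settings, among them fits without 1 library. A count-based filter kept 36 of the 46 members in the fit of normal libraries and 42 in the others. Some of these passed only through the groups in which they were high, so their counts are read against the percentage of all tested genes. In bulk tissue, fewer cells of a type and less RNA per cell cannot be told apart.

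Normal oviduct was set against normal ovary to show where the members differ between the tissues of origin. Normal oviduct had more Timp4, stromelysins and matrilysin, and less Timp1, Mmp11 and Mmp12 than ovary. Higher calls took 14 of the 36 tested members, where 28.5% of all tested genes were called higher, and lower calls took 9, where 24.5% were. Together 53.0% of all tested genes were called. In all 23 the libraries of the tissues did not overlap, as in 97.8% of all called genes and 66.0% of all tested genes. The median log2 fold change was 0.27 for the 36 members and 0.02 for all tested genes. Timp4 was higher at 6.38 ± 0.33 (adjusted p = 1.48e-05, and 6e-72 to 0.0044 over the alternatives), the neutrophil collagenase Mmp8 at 4.95 ± 0.78 (adjusted p = 0.00184, and 1.41e-10 to 0.0122 over the alternatives), Mmp10 at 4.58 ± 0.58 (adjusted p = 0.000695, and 1.7e-12 to 0.0665 over the alternatives) and Adamts8 at 4.12 ± 0.42 (adjusted p = 0.000251, and 7.23e-18 to 0.00758 over the alternatives). Mmp3 and Mmp7 were also called higher, at 1.98 to 9.53 CPM and 2.13 to 9.48 CPM in oviduct, with 1 to 3 counts in all the ovary libraries, so no fold is given. Timp1 was lower at -2.73 ± 0.49 (adjusted p = 0.00321, and 1.46e-05 to 0.0129 over the alternatives), Mmp12 at -2.55 ± 0.80 (adjusted p = 0.0313, and 0.00267 to 0.125 over the alternatives) and Mmp11 at -1.61 ± 0.42 (adjusted p = 0.0152, and 0.00186 to 0.136 over the alternatives). Adamts17 was lower at -1.45 ± 0.25 (adjusted p = 0.00293, and 0.000212 to 0.378 over the alternatives), Adamts19 at -1.40 ± 0.35 (adjusted p = 0.0133, and 0.000139 to 0.609 over the alternatives) and Adamts9 at -1.09 ± 0.17 (adjusted p = 0.00193, and 4.12e-08 to 0.147 over the alternatives). By role, 3 of 3 stromelysins and matrilysin rose. Of 6 tested proteoglycanases 3 rose and 1 fell, and of 4 inhibitors 3 rose and 1 fell. Of 7 tested other Adamts genes 4 fell and 1 rose.

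In the fit of all 32 libraries, where tumours help set the spread, 7 members remained called, namely Timp1, Timp4, Mmp3, Mmp7, Mmp8, Adamts8 and Adamts16. The share of all genes called in that fit is not given, so the drop is not read as particular to the members. Leaving out 1 library ended the call of Mmp12 in 4 cases, ovary replicates 1, 2 and 3 and oviduct replicate 1, and the last also ended that of Mmp11. Smooth muscle markers summed to 4870 to 6780 TPM in oviduct and 1110 to 1440 TPM in ovary (5 of 5 higher), epithelial markers to 1590 to 1890 and 73.3 to 132 TPM (6 of 6 higher) and fibroblast markers to 2560 to 3810 and 1260 to 1470 TPM (6 of 7 higher, 1 lower). Mesothelial and ovarian surface markers summed to 226 to 369 TPM in oviduct and 115 to 151 TPM in ovary (5 of 5 higher). Granulosa, theca and luteal markers summed to 66.8 to 979 TPM in oviduct and 8230 to 8660 TPM in ovary (7 of 7 lower), and oocyte markers to 5.34 to 111 and 316 to 357 TPM (3 of 7 lower). Oviduct replicate 2, lowest in both sums, also had the least Timp1, Mmp11 and Mmp12 of the oviducts. In replicate order the oviducts had 39, 22.7 and 53.3 TPM of Timp1 and 54.1, 24.1 and 90.3 TPM of Mmp11. Mmp12 was at 1.09, 0.39 and 3.32 TPM. Timp1, Mmp11 and Mmp12 were thus highest in replicate 3, while both marker sums were highest in replicate 1. In replicate order these were 979, 66.8 and 601 TPM (granulosa, theca and luteal) and 111, 5.34 and 94.2 TPM (oocyte). Whether ovary transcripts bear on these folds and their spread was not tested. Ciliated (5 of 5) and oviduct secretory markers (3 of 3) were also higher in oviduct. The part of these in the differences between tissues was not tested.

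OSE-BPR GEMM tumours were set against normal ovary, the organ in which they arose, and the tumours were FVB and the ovaries C57Bl/6, so model and strain cannot be told apart. OSE-BPR GEMM tumours had less Mmp19, Mmp11, Mmp17, Adamts6 and Timp1 than ovary and more Adamts8, Adamts16 and Mmp15. Of 42 tested members, 3 were called higher and 6 lower, with 11.6% of all tested genes called in each direction. The libraries of the 9 called members did not overlap, as in 96.1% of all called and 48.5% of all tested genes, and the median log2 fold change was -0.57 for members and 0.00 for all genes. Mmp19 was lower at -4.52 ± 0.92 (adjusted p = 0.00107, and 7.21e-07 to 0.015 over the alternatives), Adamts6 at -3.27 ± 0.46 (adjusted p = 3.28e-05, and 4.73e-13 to 0.00107 over the alternatives) and Mmp17 at -2.65 ± 0.67 (adjusted p = 0.00634, and 0.000473 to 0.0411 over the alternatives). Adamts12 was lower at -2.46 ± 0.88 (adjusted p = 0.0439, and 0.00502 to 0.171 over the alternatives), Mmp11 at -2.44 ± 0.74 (adjusted p = 0.0192, and 0.00226 to 0.0795 over the alternatives) and Timp1 at -2.26 ± 0.65 (adjusted p = 0.0133, and 0.00234 to 0.0727 over the alternatives). Adamts8, a proteoglycanase, was higher at 4.94 ± 1.02 (adjusted p = 0.00121, and 5.1e-07 to 0.0108 over the alternatives), Adamts16 at 4.43 ± 0.64 (adjusted p = 3.67e-05, and 4.54e-12 to 0.00189 over the alternatives) and Mmp15 at 2.30 ± 0.63 (adjusted p = 0.0104, and 0.0012 to 0.0464 over the alternatives). The call of Adamts12 was lost without any 1 of OSE-BPR GEMM replicates 2 and 3 and the 3 ovaries, that of Mmp11 without OSE-BPR GEMM replicate 2 or 3 or ovary replicate 2, and that of Timp1 without OSE-BPR GEMM replicate 3 or ovary replicate 3. Epithelial markers summed to 2720 to 3120 TPM in the tumours and 73.3 to 132 TPM in ovary (6 of 6 higher), fibroblast markers to 223 to 537 and 1260 to 1470 TPM (3 of 7 lower). Granulosa, theca and luteal markers summed to 99.6 to 327 TPM in the tumours and 8230 to 8660 TPM in ovary (6 of 7 lower), and oocyte markers to 1.43 to 40.9 and 316 to 357 TPM (6 of 7 lower). Smooth muscle markers summed to 102 to 258 TPM in the tumours and 1110 to 1440 TPM in ovary (3 of 5 lower), endothelial markers to 66.9 to 91.8 and 137 to 147 TPM (4 of 5 lower), and mesothelial and ovarian surface markers to 979 to 1590 and 115 to 151 TPM (3 of 5 higher). Their part in these results was not tested.

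Oviduct-origin GEMM tumours, the mean of Ovgp1-BPR, Pax8-BPR and Ad-BPR with equal weights, were set against normal oviduct. These tumours had more Mmp13 and Mmp12 than oviduct and less Timp4, Mmp16 and Mmp17. Of 42 tested members, 5 were called higher, where 14.8% of all genes were, and 5 lower, where 20.9% were. The tumour and oviduct libraries did not overlap in 5 of the 10, and in 57.1% of all called and 21.9% of all tested genes. Median log2 fold changes were 0.73 for members and -0.04 for all genes. Mmp13 was higher at 7.49 ± 1.15 (adjusted p = 2.03e-05, and 2.88e-17 to 0.0154 over the alternatives), Mmp12 at 4.83 ± 1.14 (adjusted p = 0.00186, and 1.1e-07 to 0.0202 over the alternatives), Timp1 at 1.83 ± 0.57 (adjusted p = 0.0142, and 0.0019 to 0.103 over the alternatives), Adamts4 at 1.57 ± 0.60 (adjusted p = 0.0418, and 0.0147 to 0.209 over the alternatives) and Mmp14 at 0.93 ± 0.34 (adjusted p = 0.038, and 0.0134 to 0.277 over the alternatives). Timp4 was lower at -7.60 ± 1.06 (adjusted p = 5.55e-06, and 1.85e-16 to 0.000615 over the alternatives), Mmp17 at -3.31 ± 0.49 (adjusted p = 1.13e-05, and 4.59e-09 to 0.00149 over the alternatives), Mmp8 at -2.14 ± 0.63 (adjusted p = 0.00994, and 0.0014 to 0.103 over the alternatives) and Mmp19 at -1.56 ± 0.61 (adjusted p = 0.0468, and 0.0212 to 0.398 over the alternatives). Mmp16 was also called lower, at 0, 0 and 0 CPM in Ovgp1-BPR, 0.495, 0.11, 0.265 and 0.215 CPM in Pax8-BPR and 0.285 and 0.398 CPM in Ad-BPR GEMM tumours, against 3.72, 3.69 and 4.38 CPM in oviduct, and no fold is given because the Ovgp1-BPR GEMM tumours had no count. The models differed within these means. Timp1 averaged 14.4 CPM in Ovgp1-BPR, 211 CPM in Pax8-BPR and 81.2 CPM in Ad-BPR GEMM tumours, against 17.6 CPM in oviduct. Mmp8 averaged 0.271, 5.06 and 2.51 CPM in that order, against 6.69 CPM in oviduct. Without oviduct replicates 1 and 3 a single oviduct library is left, and the spread comes from the other groups. In that fit Mmp12, Mmp13, Mmp16, Mmp17 and Timp4 were called and the other 5 were not, all 10 with the same direction. Fewer libraries and fewer ovary transcripts cannot be told apart there. Leaving out 1 library ended the call of Mmp8 without oviduct replicate 3, of Timp1 without oviduct replicate 2, of Mmp14 without any oviduct, Ad-BPR replicate 2, Pax8-BPR replicate 1 or Ovgp1-BPR replicate 3, of Adamts4 without oviduct replicate 1 or 2, either Ad-BPR tumour, Pax8-BPR replicate 1 or 4 or Ovgp1-BPR replicate 3, and of Mmp19 without any library but Pax8-BPR replicate 1 or Ovgp1-BPR replicate 2. Smooth muscle markers fell (5 of 5), and macrophage markers (5 of 7) and neutrophil markers (5 of 6, with 1 lower) rose in the same comparison, as did epithelial markers (3 of 6). Granulosa, theca and luteal markers (6 of 7), oocyte markers (7 of 7) and ciliated markers (4 of 5) fell. Their part was not tested.

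Taken model by model against the same 3 oviducts, which are therefore shared, the GEMM tumours differed in which members were called. Ovgp1-BPR GEMM tumours had 5 members higher (15.3% of all genes) and 6 lower (17.3%), Pax8-BPR GEMM tumours 7 higher (15.9%) and 3 lower (16.3%), and Ad-BPR GEMM tumours 7 higher (11.7%) and 3 lower (12.3%). Libraries did not overlap in 9 of 11, 9 of 10 and 10 of 10 calls in that order of models, in 95.6%, 87.8% and 98.8% of all called genes, and in 54.2%, 42.0% and 65.8% of all tested genes. Mmp13 stood at 3.70 ± 1.11 (adjusted p = 0.0134) in Ovgp1-BPR, 8.80 ± 1.23 (adjusted p = 8.64e-06) in Pax8-BPR and 9.98 ± 1.30 (adjusted p = 6.4e-06) in Ad-BPR. Timp4 stood at -7.02 ± 1.48 (adjusted p = 0.000994) in Ovgp1-BPR, -7.41 ± 1.33 (adjusted p = 0.000173) in Pax8-BPR and -8.38 ± 1.94 (adjusted p = 0.00342) in Ad-BPR. Mmp17 stood at -3.68 ± 0.70 (adjusted p = 0.000375) in Ovgp1-BPR, -3.25 ± 0.61 (adjusted p = 0.000313) in Pax8-BPR and -3.01 ± 0.80 (adjusted p = 0.00881) in Ad-BPR. These 3 genes were called in the same direction in each model. Mmp12 was called in Pax8-BPR at 6.32 ± 1.26 (adjusted p = 0.000505, and 4.68e-10 to 0.0192 over the alternatives) and in Ad-BPR at 5.88 ± 1.28 (adjusted p = 0.00214, and 3.61e-06 to 0.0228 over the alternatives), and Timp1 in Pax8-BPR at 3.58 ± 0.67 (adjusted p = 0.00026, and 1.44e-08 to 0.0174 over the alternatives) and in Ad-BPR at 2.21 ± 0.69 (adjusted p = 0.022, and 0.00636 to 0.147 over the alternatives). Median log2 fold changes of members were 0.16 in Ovgp1-BPR, 0.78 in Pax8-BPR and 0.945 in Ad-BPR, and those of all genes -0.05, -0.01 and -0.07 in that order.

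Further calls set the models' lists apart, although the differences between models are tested only below. Ovgp1-BPR GEMM tumours against oviduct had more of the proteoglycanases Adamts20, Adamts8 and Adamts9, at 3.88 ± 1.45 (adjusted p = 0.0423, and 0.00556 to 0.384 over the alternatives), 2.81 ± 0.89 (adjusted p = 0.0176, and 0.00203 to 0.282 over the alternatives) and 1.91 ± 0.53 (adjusted p = 0.00755, and 0.00177 to 0.112 over the alternatives), and more Adamts17, at 4.10 ± 1.12 (adjusted p = 0.00728, and 0.000215 to 0.168 over the alternatives). They had at least 23.9-fold less Mmp16, which had no count in any of the 3 tumours, and less Mmp8 at -4.59 ± 0.96 (adjusted p = 0.000951, and 8.34e-08 to 0.00889 over the alternatives), Mmp19 at -3.39 ± 0.86 (adjusted p = 0.00442, and 0.000146 to 0.0529 over the alternatives) and Adamts2 at -1.07 ± 0.41 (adjusted p = 0.0483, and 0.0226 to 0.326 over the alternatives). Pax8-BPR GEMM tumours had more Mmp3 at 3.54 ± 1.31 (adjusted p = 0.0405, and 0.0154 to 0.274 over the alternatives), Mmp25 at 3.11 ± 0.90 (adjusted p = 0.0101, and 2.76e-05 to 0.185 over the alternatives) and Mmp15 at 1.89 ± 0.60 (adjusted p = 0.0181, and 0.00379 to 0.269 over the alternatives), and less Mmp16 at -3.84 ± 1.12 (adjusted p = 0.0113, and 0.000702 to 0.0988 over the alternatives). Ad-BPR GEMM tumours had more Mmp10 at 4.93 ± 1.47 (adjusted p = 0.0173, and 0.00516 to 0.271 over the alternatives), Mmp7 at 4.81 ± 1.45 (adjusted p = 0.0219, and 0.000179 to 0.167 over the alternatives), Mmp9 at 3.60 ± 1.08 (adjusted p = 0.0182, and 0.00333 to 0.548 over the alternatives) and Adamts16 at 2.50 ± 0.61 (adjusted p = 0.00476, and 0.000588 to 0.163 over the alternatives), and less Timp3 at -1.30 ± 0.38 (adjusted p = 0.0156, and 0.00326 to 0.183 over the alternatives). With replicate 2 as the only oviduct library, 4 of these members were called in Ovgp1-BPR, 5 in Pax8-BPR and 4 in Ad-BPR, and the others kept their direction. Ad-BPR rests on 2 tumours, and without replicate 2 only Mmp12 and Mmp13 of its 10 calls held, while Mmp17 was lost without replicate 1, Mmp10 without any oviduct, Timp1 and Mmp7 without oviduct replicate 1 or 2, Mmp9 without replicate 1 or 3 and Timp3 without replicate 2. In Ovgp1-BPR, Adamts20 and Adamts2 lost their calls without GEMM replicate 2 or 3 or any oviduct, Adamts8 without GEMM replicate 3 or oviduct replicate 1 or 3, and Mmp13 without GEMM replicate 2 or oviduct replicate 1. In Pax8-BPR, Mmp3 lost its call without GEMM replicate 2, 3 or 4 or any oviduct, and Mmp15 without oviduct replicate 1 or 3. Macrophage markers summed to 295 to 1310 TPM in Ovgp1-BPR, 2360 to 4190 TPM in Pax8-BPR and 1580 to 1600 TPM in Ad-BPR GEMM tumours. Oviduct had 320 to 508 TPM, and 0 of 7, 6 of 7 and 2 of 7 were higher in that order of models. In the same order neutrophil markers summed to 9.25 to 57.8, 322 to 824 and 26.2 to 99.8 TPM, against 4.11 to 23.8 TPM in oviduct. Of these, 1 of 6, 5 of 6 and 2 of 6 were higher, with 1 lower in Ovgp1-BPR. Fibroblast markers summed to 535 to 1360, 1310 to 3240 and 2300 to 3100 TPM, against 2560 to 3810 TPM in oviduct. Of these, 5 of 7, 1 of 7 and 1 of 7 were lower. Smooth muscle markers were lower in each model (5 of 5). Mesothelial and ovarian surface markers summed to 1190 to 1470 TPM in Ovgp1-BPR (3 of 5 higher), 51.6 to 660 TPM in Pax8-BPR (2 of 5 lower) and 331 to 385 TPM in Ad-BPR GEMM tumours (2 of 5 lower), against 226 to 369 TPM in oviduct. Their part was not tested.

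The site of origin was addressed by setting OSE-BPR tumours against oviduct-origin tumours, separately in allografts and in GEMM tumours. OSE-BPR tumours had less of several secreted Mmps, among them the cluster genes Mmp3, Mmp7, Mmp10 and Mmp13, and less Mmp14, Adamts4, Adamts6, Adamts12 and Timp2. OSE-BPR had more Adamts17 and Mmp16 than the mean of the oviduct-origin models. In allografts 7 of 42 tested members were called higher, where 20.4% of all genes were, and 21 lower, where 17.4% were. In GEMM tumours 2 were called higher, where 14.9% of all genes were, and 15 lower, where 11.1% were. Arms did not overlap in 9 of the 28 allograft calls and 3 of the 17 GEMM calls, in 26.6% and 36.4% of all genes called in those comparisons, and in 10.1% and 10.5% of all tested genes. The median log2 fold change of members was -1.17 in allografts and -1.43 in GEMM tumours, against 0.04 and 0.02 for all genes. OSE-BPR is FVB and the others are C57Bl/6, so site and strain cannot be told apart.

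Among stromelysins and matrilysin, 3 of 3 fell in allografts and 3 of 3 in GEMM tumours. Mmp7 had no count in OSE-BPR. Against the mean of the oviduct-origin models, 17.1 CPM in allografts and 54.6 CPM in GEMM tumours, this was at least 95-fold and 299-fold lower. Model means were 0.439 CPM in Ovgp1-BPR, 17.0 CPM in Pax8-BPR and 34.0 CPM in Ad-BPR allografts. In GEMM tumours they were 1.04, 4.85 and 158 CPM in that order, so the GEMM bound rests mostly on Ad-BPR. Ovgp1-BPR allograft replicate 2 and GEMM replicate 3 also had no count of Mmp7, so the arms overlapped. Mmp3 was lower at -7.73 ± 1.43 (adjusted p = 0.000348, and 7.24e-11 to 0.00158 over the alternatives) in allografts and -4.71 ± 1.48 (adjusted p = 0.0238, and 0.00107 to 0.1 over the alternatives) in GEMM tumours. Mmp10 was lower at -5.60 ± 1.33 (adjusted p = 0.00264, and 3.66e-07 to 0.0169 over the alternatives) in allografts and -4.76 ± 1.55 (adjusted p = 0.0286, and 0.000521 to 0.12 over the alternatives) in GEMM tumours. The collagenase Mmp13 was lower at -7.22 ± 0.96 (adjusted p = 1.38e-05, and 1.31e-21 to 8.93e-05 over the alternatives) in allografts and -6.48 ± 1.15 (adjusted p = 0.000448, and 3.52e-13 to 0.00576 over the alternatives) in GEMM tumours. The gelatinase Mmp9 was lower at -3.35 ± 0.85 (adjusted p = 0.00416, and 8.91e-06 to 0.0139 over the alternatives) in allografts and -3.54 ± 1.07 (adjusted p = 0.0192, and 0.000169 to 0.0955 over the alternatives) in GEMM tumours, while Mmp2 was not called in either. Mmp12 was called in allografts, at -4.27 ± 0.87 (adjusted p = 0.000741, and 5.44e-09 to 0.00314 over the alternatives). Mmp14 was lower at -2.17 ± 0.33 (adjusted p = 4.68e-05, and 2.98e-11 to 0.000276 over the alternatives) in allografts and -1.59 ± 0.39 (adjusted p = 0.00546, and 0.000139 to 0.0455 over the alternatives) in GEMM tumours. Mmp25 was called lower in GEMM tumours with 3 counts in all the OSE-BPR libraries together, so only its levels are given, a mean of 0.065 CPM against 2.01 CPM.

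Of the Adamts genes, Adamts6 was lower at -4.29 ± 0.40 (adjusted p = 1.87e-07, and 6.39e-34 to 1.72e-05 over the alternatives) in allografts and -3.20 ± 0.47 (adjusted p = 7.86e-05, and 4.87e-15 to 0.00135 over the alternatives) in GEMM tumours, and the aggrecanase Adamts4 at -2.83 ± 0.53 (adjusted p = 0.000406, and 3.73e-08 to 0.00196 over the alternatives) and -3.21 ± 0.68 (adjusted p = 0.002, and 3.93e-07 to 0.0158 over the alternatives). Adamts17, whose substrates are poorly known, was higher at 2.54 ± 0.76 (adjusted p = 0.012, and 0.00213 to 0.0817 over the alternatives) in allografts and 2.68 ± 0.82 (adjusted p = 0.0208, and 0.00887 to 0.155 over the alternatives) in GEMM tumours. Mmp16 was called higher in GEMM tumours, at 9.25, 1.1 and 0.488 CPM in OSE-BPR, against 0, 0 and 0 CPM in Ovgp1-BPR, 0.495, 0.11, 0.265 and 0.215 CPM in Pax8-BPR and 0.285 and 0.398 CPM in Ad-BPR. No fold is given, since Ovgp1-BPR GEMM tumours had no count. It was also called higher in allografts, with both arms below 1 CPM on average. In allografts Adamts19 was higher at 5.07 ± 1.38 (adjusted p = 0.0068, and 6.06e-05 to 0.0462 over the alternatives), a fold that rests in part on 3 counts in both Pax8-BPR allografts together, Adamts9 at 2.16 ± 0.38 (adjusted p = 0.000205, and 6.84e-07 to 0.00286 over the alternatives), Mmp15 at 1.48 ± 0.45 (adjusted p = 0.0132, and 0.000712 to 0.0526 over the alternatives), Adamts10 at 0.90 ± 0.29 (adjusted p = 0.0184, and 0.00312 to 0.0937 over the alternatives) and Timp3 at 0.65 ± 0.24 (adjusted p = 0.0384, and 0.00985 to 0.113 over the alternatives). In allografts, Ovgp1-BPR averaged more than OSE-BPR of Timp3 (554 against 511 CPM), Adamts10 (137 against 133 CPM) and Adamts17 (15.8 against 12.4 CPM). Those calls therefore do not set OSE-BPR apart from every oviduct-origin model. Ovgp1-BPR allografts averaged less of Adamts19 (12.3 against 19.6 CPM), Adamts9 (116 against 228 CPM) and Mmp15 (33.6 against 226 CPM). Among inhibitors Timp2 was lower at -1.22 ± 0.22 (adjusted p = 0.000275, and 2.33e-07 to 0.0014 over the alternatives) in allografts and -0.85 ± 0.26 (adjusted p = 0.0221, and 0.00579 to 0.132 over the alternatives) in GEMM tumours. The other members called lower were Adamts1, Adamts12, Mmp19, Mmp27 and Mmp28 in both kinds of tumour and Adamts3, Adamts5, Adamts15, Mmp8 and Mmp23 in allografts, with Mmp25 in both.

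All 15 members called lower in GEMM tumours were among the 21 called lower in allografts (100% of the GEMM list, 71.4% of the allograft list), and both members called higher in GEMM tumours were among the 7 called higher in allografts (28.6%). The same overlap over all called genes is not given, so it is not read as particular to the members. Allograft and GEMM libraries are separate samples, but the labels do not say whether a graft came from a GEMM tumour counted here. With 3 OSE-BPR GEMM tumours, leaving out 1 at a time left 8 to 19 called members, 8 without replicate 3 and 9 without replicate 2. The shares of all genes called in those fits are not given, so these counts describe the fits. Calls of Mmp9, Mmp3, Mmp10 and Timp2 were lost without OSE-BPR GEMM replicate 2 or 3, those of Mmp9 also without OSE-BPR GEMM replicate 1 or Ad-BPR GEMM replicate 2, of Mmp10 also without Ad-BPR GEMM replicate 2, and of Adamts17 without OSE-BPR GEMM replicate 2 or Ad-BPR GEMM replicate 1. In allografts Mmp7 lost its call without Ovgp1-BPR allograft replicate 3, Adamts17 without Pax8-BPR allograft replicate 1, Mmp15 without Pax8-BPR allograft replicate 2, Adamts10 without OSE-BPR allograft replicate 4 or 5 or Pax8-BPR allograft replicate 2, and Timp3 without any 1 of OSE-BPR allograft replicates 2 to 5, Ad-BPR allograft replicate 3 and the Pax8-BPR and Ovgp1-BPR allografts.

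Markers of other cell types moved with these results. Fibroblast markers summed to 198 to 581 TPM in OSE-BPR allografts, against 753 to 6250 TPM in oviduct-origin allografts, and to 223 to 537 TPM in OSE-BPR GEMM tumours, against 535 to 3240 TPM in oviduct-origin GEMM tumours (5 of 7 lower in both). Macrophage markers summed to 303 to 494 TPM in OSE-BPR allografts, against 426 to 3960 TPM, and to 174 to 662 TPM in OSE-BPR GEMM tumours, against 295 to 4190 TPM (7 of 7 lower in both). Neutrophil markers summed to 0.58 to 8.35 TPM in OSE-BPR allografts, against 10.4 to 176 TPM, and to 1.6 to 12.6 TPM in OSE-BPR GEMM tumours, against 9.25 to 824 TPM (5 of 5 tested of 6 listed lower in both, with Ly6g and Retnlg at 0 in OSE-BPR). Epithelial markers summed to 2660 to 5370 TPM in OSE-BPR allografts and 2720 to 3120 TPM in OSE-BPR GEMM tumours, against 822 to 10500 TPM in oviduct-origin allografts and 1020 to 7750 TPM in oviduct-origin GEMM tumours, with 0 of 6 called by edgeR. Smooth muscle markers summed to 112 to 258 TPM in OSE-BPR allografts, against 232 to 1060 TPM, and to 102 to 258 TPM in OSE-BPR GEMM tumours, against 157 to 791 TPM (4 of 5 lower in both). Mesothelial and ovarian surface markers summed to 1270 to 1670 TPM in OSE-BPR allografts, against 290 to 2290 TPM, and to 979 to 1590 TPM in OSE-BPR GEMM tumours, against 51.6 to 1470 TPM (3 of 5 higher in both). The part of these cells in the differences was not tested.

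**Figure D5:**
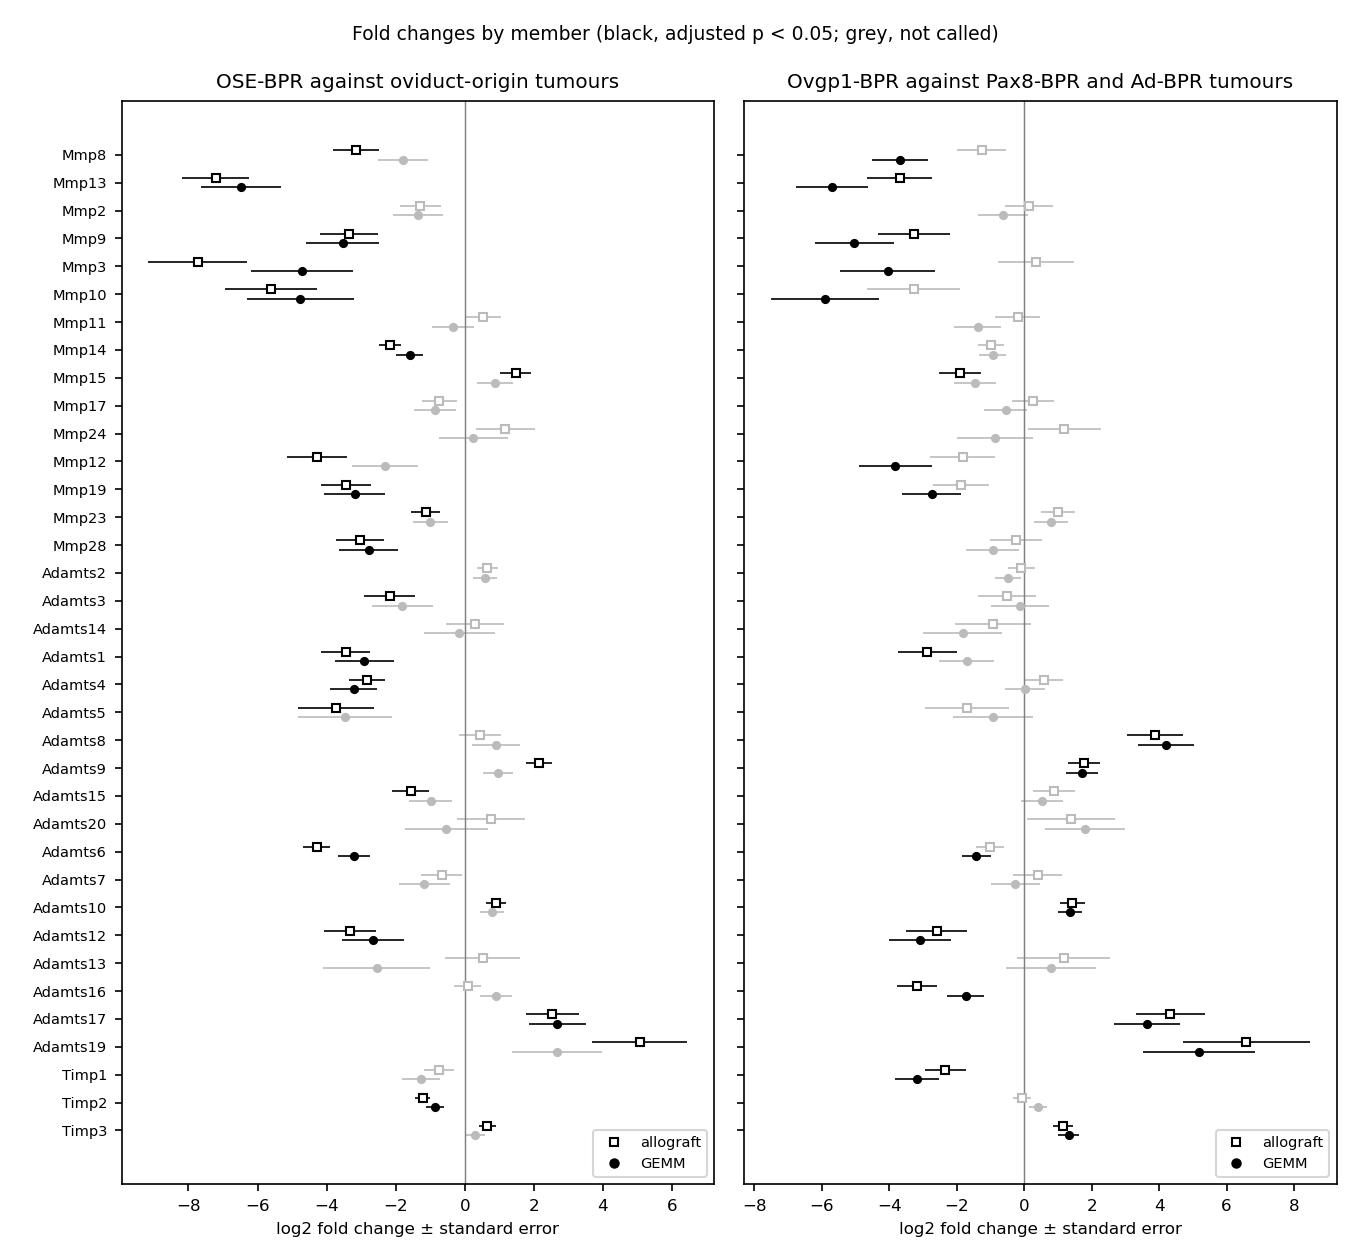
Log2 fold change ± SE (x) of 36 members (rows) in OSE-BPR against oviduct-origin tumours (left) and in Ovgp1-BPR against Pax8-BPR and Ad-BPR tumours (right), with allografts as open squares and GEMM tumours as filled circles, black where called. The 6 members with an arm at or near 0 counts are left out, and Mmp13 lies left of 0 in all 4 comparisons.

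Ovgp1-BPR was set against Pax8-BPR and Ad-BPR, the other models of the oviduct, which enter with equal weights and also serve in the comparisons of site. By the sample labels Ovgp1-BPR differs from both in the Trp53 allele, from Pax8-BPR in the promoter that drives CreERT2 and from Ad-BPR in the way Cre was delivered, and these cannot be told apart. Ovgp1-BPR tumours had more of the Adamts proteases 8, 9, 10, 17 and 19 and more Timp3, and less Mmp7, Mmp9, Mmp13 and Timp1. In allografts 6 of 42 tested members were called higher, where 13.7% of all genes were, and 8 lower, where 8.60% were. In GEMM tumours 6 were called higher, where 12.5% of all genes were, and 13 lower, where 10.2% were. Arms did not overlap in 11 of the 14 allograft calls and 11 of the 19 GEMM calls, in 69.2% and 71.7% of all genes called in those comparisons, and in 21.2% and 22.1% of all tested genes. The median log2 fold change of members was -0.19 in allografts and -0.94 in GEMM tumours (-0.93 with members at 0 set to their bound), against 0.02 and -0.01 for all genes.

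Adamts8 was at 73.8, 11 and 8.83 CPM in Ovgp1-BPR allografts and 2.22, 43 and 104 CPM in Ovgp1-BPR GEMM tumours, against 3.46 and 0.803 CPM in Pax8-BPR allografts, 4.66, 1.65, 1.17 and 4.03 CPM in Pax8-BPR GEMM tumours, 2.79, 1.72, 1.67 and 2.16 CPM in Ad-BPR allografts and 1.35 and 3.75 CPM in Ad-BPR GEMM tumours. Adamts17 was at 6.89, 39.5 and 0.888 CPM in Ovgp1-BPR allografts and 0.689, 48.1 and 20.6 CPM in GEMM tumours, against 0.277 to 4.79 CPM over the 12 Pax8-BPR and Ad-BPR tumours. Adamts19 was at 0.168, 35.9 and 0.748 CPM in Ovgp1-BPR allografts and 2.17, 112 and 1.08 CPM in GEMM tumours, against 0 to 7.14 CPM over the 12 others. The high libraries differed by gene, since Adamts8 peaked in GEMM replicate 3 and allograft replicate 1, and Adamts17 and Adamts19 in GEMM replicate 2 and allograft replicate 2. Adamts8 was higher at 3.88 ± 0.82 (adjusted p = 0.00243, and 1.38e-05 to 0.0646 over the alternatives) in allografts and 4.20 ± 0.83 (adjusted p = 0.00184, and 2.02e-06 to 0.0264 over the alternatives) in GEMM tumours. Adamts9 was higher at 1.77 ± 0.48 (adjusted p = 0.0116, and 0.00394 to 0.075 over the alternatives) and 1.71 ± 0.48 (adjusted p = 0.015, and 0.00514 to 0.0815 over the alternatives), and Adamts10 at 1.42 ± 0.37 (adjusted p = 0.0093, and 0.00335 to 0.062 over the alternatives) and 1.36 ± 0.37 (adjusted p = 0.0128, and 0.0035 to 0.0617 over the alternatives), each given for allografts and then GEMM tumours. In the same order Adamts17 was higher at 4.32 ± 1.02 (adjusted p = 0.0053, and 5.8e-05 to 0.135 over the alternatives) and 3.64 ± 0.98 (adjusted p = 0.0126, and 0.000804 to 0.102 over the alternatives), Adamts19 at 6.58 ± 1.87 (adjusted p = 0.0159, and 0.000106 to 0.552 over the alternatives) and 5.18 ± 1.67 (adjusted p = 0.0306, and 0.00226 to 0.829 over the alternatives), and Timp3 at 1.15 ± 0.31 (adjusted p = 0.0107, and 0.0031 to 0.046 over the alternatives) and 1.32 ± 0.31 (adjusted p = 0.00503, and 0.000693 to 0.0566 over the alternatives). The allograft fold of Adamts19 rests in part on 3 counts in both Pax8-BPR allografts together.

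Mmp13 was lower in Ovgp1-BPR at -3.69 ± 0.95 (adjusted p = 0.00912, and 8.53e-05 to 0.047 over the alternatives) in allografts and -5.69 ± 1.07 (adjusted p = 0.00121, and 5.54e-10 to 0.0175 over the alternatives) in GEMM tumours, Mmp7 at -5.71 ± 1.60 (adjusted p = 0.0195, and 0.00018 to 0.0852 over the alternatives) and -4.72 ± 1.50 (adjusted p = 0.0354, and 0.000285 to 0.12 over the alternatives), and Mmp9 at -3.27 ± 1.07 (adjusted p = 0.0321, and 0.0014 to 0.14 over the alternatives) and -5.03 ± 1.18 (adjusted p = 0.00533, and 4.12e-07 to 0.0351 over the alternatives). Timp1 was lower at -2.34 ± 0.61 (adjusted p = 0.00992, and 0.000249 to 0.0679 over the alternatives) in allografts and -3.18 ± 0.64 (adjusted p = 0.00213, and 4.12e-07 to 0.0309 over the alternatives) in GEMM tumours. In GEMM tumours Mmp10 was lower at -5.92 ± 1.60 (adjusted p = 0.0128, and 2.86e-05 to 0.07 over the alternatives), Mmp3 at -4.04 ± 1.41 (adjusted p = 0.0429, and 0.00384 to 0.134 over the alternatives) and Mmp12 at -3.82 ± 1.07 (adjusted p = 0.0155, and 0.000122 to 0.0831 over the alternatives), and none of the 3 was called in allografts. Mmp8, Mmp19, Mmp25, Adamts6, Adamts12 and Adamts16 complete the 13 members called lower in GEMM tumours. In allografts Adamts16 was lower at -3.19 ± 0.60 (adjusted p = 0.000991, and 4.91e-08 to 0.0115 over the alternatives), Adamts1 at -2.87 ± 0.88 (adjusted p = 0.0237, and 0.000968 to 0.121 over the alternatives), Adamts12 at -2.59 ± 0.90 (adjusted p = 0.0444, and 0.00165 to 0.183 over the alternatives) and Mmp15 at -1.91 ± 0.63 (adjusted p = 0.0343, and 0.000912 to 0.163 over the alternatives). The gelatinase Mmp2 was not called in either. The 6 members called higher were the same in allografts and GEMM tumours (100% of each list), and 6 called lower were shared (46.2% of the 13 in GEMM tumours, 75% of the 8 in allografts), with 0 members called in opposite directions. The share over all called genes is not given, so this overlap is not read as particular to the members. Here too the labels do not say which GEMM tumour a graft came from.

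Small groups limit these calls, and 5 to 15 members were called in allografts and 10 to 18 in GEMM tumours when 1 library was left out. The shares of all genes called in those fits are not given, so these counts describe the fits. In allografts 5 remained without Ovgp1-BPR allograft replicate 2 and 8 without replicate 1, and the calls of Mmp7, Mmp9, Mmp15, Adamts1 and Adamts12 were lost without either, those of Timp1, Adamts9, Adamts17 and Adamts19 without replicate 2 and that of Adamts8 without replicate 1. Pax8-BPR allograft replicate 2 also ended the calls of Adamts9, Adamts10, Adamts12, Adamts19 and Mmp15 when left out, replicate 1 those of Adamts12, Adamts19, Mmp9 and Mmp15, any Ad-BPR allograft that of Adamts12, Ad-BPR allograft replicate 2 that of Mmp9 and replicate 3 that of Mmp15. In GEMM tumours Mmp7, Adamts17 and Adamts19 lost their calls without Ovgp1-BPR GEMM replicate 2 or Ad-BPR GEMM replicate 1 or 2, Mmp7 also without Ovgp1-BPR GEMM replicate 3, Mmp10 without Ovgp1-BPR GEMM replicate 2 or 3, Mmp12 without replicate 3, Adamts9 without Ad-BPR GEMM replicate 1 or Ovgp1-BPR GEMM replicate 2, Adamts10 without Ad-BPR GEMM replicate 1 or Ovgp1-BPR GEMM replicate 3, and Mmp3 without either Ad-BPR GEMM tumour, Pax8-BPR GEMM replicate 2, 3 or 4 or Ovgp1-BPR GEMM replicate 1 or 3. Fibroblast markers summed to 753 to 967 TPM in Ovgp1-BPR allografts, against 1460 to 6250 TPM in Pax8-BPR and Ad-BPR allografts, and to 535 to 1360 TPM in Ovgp1-BPR GEMM tumours, against 1310 to 3240 TPM (4 of 7 lower and 1 higher in both). Macrophage markers summed to 426 to 2190 TPM, against 604 to 3960 TPM, in allografts (edgeR called 0 of 7) and to 295 to 1310 TPM, against 1580 to 4190 TPM, in GEMM tumours (4 of 7 lower). Epithelial markers summed to 822 to 4750 TPM, against 5940 to 10500 TPM, in allografts and to 1020 to 3440 TPM, against 1840 to 7750 TPM, in GEMM tumours (2 of 6 lower in both). Neutrophil markers summed to 10.4 to 90.3 TPM, against 28.3 to 176 TPM, in allografts (edgeR called 0 of 5 tested). In GEMM tumours they summed to 9.25 to 57.8 TPM, against 26.2 to 824 TPM (1 of 5 tested lower). Mesothelial and ovarian surface markers were higher beside the higher Adamts genes and Timp3, at 992 to 2290 TPM, against 290 to 526 TPM, in allografts and 1190 to 1470 TPM, against 51.6 to 660 TPM, in GEMM tumours (4 of 5 higher in both). The part of these cells in the results was not tested.

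Pax8-BPR GEMM tumours, set against Ad-BPR GEMM tumours with the same Brca1, Trp53 and K18GT121 alleles, gave no member and no gene called by edgeR (0% of 20000 genes). At an unadjusted p < 0.05 there were 6 members, namely Mmp7, Timp3, Adamts20, Mmp10, Adamts16 and Mmp27. The share of all genes at that threshold is not given, so this count is not read as particular to the members. Mmp7 was at 2.4, 13.8, 2.39 and 0.806 CPM in Pax8-BPR GEMM tumours, against 102 and 214 CPM in Ad-BPR GEMM tumours, without overlap, and had the lowest adjusted p, 0.523, with a log2 fold change of -5.02 ± 1.42. DESeq2 and edgeR with RLE factors also called 0 members, and limma on log2(TPM + 1) called Mmp7 (adjusted p = 0.0118). With 2 Ad-BPR GEMM tumours, this does not show that the models are alike.

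Allografts, set against GEMM tumours with the 4 models weighted equally, also gave 0 members and 0 genes called by edgeR (0% of 20000), and 0 members by DESeq2, by RLE factors and by limma. At an unadjusted p < 0.05 there was 1 member, Adamts2, at -0.47 ± 0.22 (adjusted p = 0.816). The median log2 fold change was -0.41 for members and -0.02 for all genes. The test of whether this effect differs between models called 0 members by edgeR, DESeq2, RLE factors and limma alike (0% of 20000 genes), with 3 members, Mmp11, Mmp8 and Mmp3, at an unadjusted p < 0.05 and a lowest adjusted p of 1. For neither test is the share of all genes at an unadjusted p < 0.05 given, so these counts are not read as particular to the members. Mmp3 was -2.67 ± 1.57 in OSE-BPR, 3.27 ± 1.42 in Ovgp1-BPR, -2.56 ± 1.56 in Pax8-BPR and 0.32 ± 1.38 in Ad-BPR, allograft against GEMM tumour, and in no model was a member called.

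Genes that regulate or are cut by the members were read from lists of plasminogen activation, other matrix proteases and their regulators, matrix substrates and AP-1. In OSE-BPR against oviduct-origin tumours, 6 of 7 AP-1 genes fell in allografts, where 17.4% of all tested genes did, and 6 of 7 in GEMM tumours, where 11.1% did. In GEMM tumours Junb was lower at -2.71 ± 0.56 (adjusted p = 0.00156, and 4.72e-07 to 0.0177 over the alternatives), Fos at -2.74 ± 0.72 (adjusted p = 0.00899, and 6.84e-05 to 0.0544 over the alternatives) and Fosl1 at -2.93 ± 0.87 (adjusted p = 0.0181, and 0.000642 to 0.0955 over the alternatives). The calls of Fos and Fosl1 were lost without OSE-BPR GEMM replicate 3, and that of Fosl1 also without replicate 2. Of plasminogen activation genes 5 of 7 fell in allografts and 2 of 7 in GEMM tumours, among them the urokinase receptor Plaur at -2.67 ± 0.64 (adjusted p = 0.00483, and 1.66e-05 to 0.0406 over the alternatives) in GEMM tumours. Other proteases and regulators fell in 11 of 19 and 10 of 19, and substrates in 9 of 13 and 5 of 13, in allografts and GEMM tumours. Oviduct-origin GEMM tumours against normal oviduct had 4 of 7 AP-1 genes higher, among them Junb at 2.48 ± 0.51 (adjusted p = 0.000538, and 4.16e-07 to 0.058 over the alternatives), and 4 of 7 plasminogen activation genes higher, among them Plaur at 2.18 ± 0.57 (adjusted p = 0.00412, and 0.000118 to 0.168 over the alternatives), where 14.8% of all genes were higher. With a single oviduct library left, Junb and Plaur were not called. Of other proteases and regulators 5 of 19 were higher and 3 lower there (20.9% of all genes), including Reck, a membrane-anchored inhibitor of Mmps, at -2.53 ± 0.45 (adjusted p = 0.000131, and 3.76e-06 to 0.00424 over the alternatives). Both comparisons use the 9 oviduct-origin GEMM tumours, so their counts are not independent.

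In Ovgp1-BPR against Pax8-BPR and Ad-BPR, 4 of 13 substrates fell in allografts and 8 of 13 in GEMM tumours, and 2 of 7 AP-1 genes fell in allografts and 1 of 7, Junb, in GEMM tumours, where 8.60% and 10.2% of all genes fell. Of other proteases and regulators 3 of 19 fell and 2, Reck and the broad protease inhibitor A2m, rose in allografts (13.7% of all genes), and 6 of 19 fell in GEMM tumours. Reck was at 6.22, 35.4 and 3.27 CPM in Ovgp1-BPR allografts, against 1.53 and 1.82 CPM in Pax8-BPR and 4.82, 2.48, 3.73 and 4.49 CPM in Ad-BPR allografts, and its fold was 2.55 ± 0.58 (adjusted p = 0.00397, and 0.000255 to 0.289 over the alternatives). The arms overlapped, and without Ovgp1-BPR allograft replicate 2 the fold of Reck was 0.87 (adjusted p = 0.289). A2m was at 56.6, 159 and 2.1 CPM in Ovgp1-BPR allografts, against 0.235 and 1.9 CPM in Pax8-BPR and 0.0698, 0.296, 3.09 and 2.33 CPM in Ad-BPR allografts, at 5.87 ± 1.60 (adjusted p = 0.0124, and 0.000812 to 0.0865 over the alternatives). These arms overlapped too, and the call of A2m was lost without Ovgp1-BPR allograft replicate 2 or either Pax8-BPR allograft. Plasminogen activation had 0 of 7 called by edgeR in allografts and 1 of 7, Serpine2, lower in GEMM tumours. OSE-BPR GEMM tumours against normal ovary had 8 of 19 other proteases and regulators and 4 of 13 substrates lower, with 1 and 2 higher, where 11.6% of all genes were called in each direction. Normal oviduct against ovary had 6 of 19 and 6 of 13 higher and 5 of 19 and 7 of 13 lower in those lists, where 28.5% of all genes were higher and 24.5% lower. Col1a1 and Col1a2 stand in both the substrate list and the fibroblast marker list.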

How the data were processed

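RNA of 26 tumours and 6 normal tissues was analysed from gene tables of expected counts and of TPM. RSEM expected counts (estimated counts that divide shared reads between genes) and TPM values were deposited by the authors for 55450 genes. The submitters' processing notes name bcl2fastq, cutadapt 1.18, STAR 2.7.0f, RSEM 1.3.1, Picard, mm10 and GRCm38. Whether counting used strand is not given in the sources used, which bears on Timp3, Adamts9 and other members whose exons overlap a gene on the opposite strand. Coordinates are from GENCODE M21, which matched 55450 of 55450 gene IDs, and promoter sequences are from RefSeq (GRCm38.p6).

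After rounding, expected counts went into edgeR 4.0.16 (R 4.3.3) and its quasi-likelihood test (TMM, filterByExpr with minimum count 10 and minimum total 15, Benjamini-Hochberg adjustment over all genes). Normal tissues were fitted alone (6 libraries, 17334 genes), tumours together (26, 20000 genes) and tumours with normal tissue in all 32 (20887 genes). Group means were contrasted without other terms. CPM use TMM factors of all 32 libraries. An arm with a count of 0 throughout gives a bound against 3 counts per library, and arms with 1 to 3 counts give levels only. Fits were tested on simulated data. The lowest chi-square per degree of freedom among 39 pairs of libraries within groups was 10.9, so no pair looks like a repeated library. Oviduct and ovary share 3 animals, whose deviations correlated at -0.108, -0.069 and 0.0755, and a fit with the animal as a block is an alternative. Other alternatives were DESeq2 1.42.0, RLE factors, limma 3.58.1 on log2(TPM + 1), no filter, fits of only the groups compared or of all libraries, and leaving out libraries.

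Members and lists were chosen with earlier results of these data known. Values in every library are given for 20 members (Mmp2, Mmp3, Mmp7, Mmp9 to Mmp15, Adamts1, Adamts2, Adamts4, Adamts5, Adamts9, Adamts12 and the 4 Timps). Per comparison, the called members with the largest fold change are named, up to 6 per direction, provided the higher arm averages 1 CPM or more. Some genes of the other lists are not reported here.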

Additional observations from a re-analysis of the deposited data

Results flagged for a closer look

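In 6 of the 109 gene and group pairs with 4 to 10 libraries, 1 library stood far from its group on the log2(CPM + 1) scale, where chance gives about 5%. Adamts13 was 1.54 CPM in Ad-BPR allograft replicate 1 and 0.129 to 0.277 CPM in the other 3. Mmp9 was 5.92 CPM in OSE-BPR allograft replicate 3 and 0.86 to 1.29 CPM in the other 4. Mmp7 was 4.83 CPM in Ad-BPR allograft replicate 3 and 40.4 to 50.4 CPM in the other 3. Timp3 was 282 CPM in OSE-BPR allograft replicate 1 and 512 to 614 CPM in the other 4. Mmp25 was 2.65 CPM in Pax8-BPR GEMM replicate 3 and 4.62 to 4.96 CPM in the other 3. Mmp2 was 247 CPM in OSE-BPR allograft replicate 5 and 50 to 67.2 CPM in the other 4.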

How the results depend on the processing

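Counts of called members moved most with single libraries and with the libraries that set the spread. The share of all genes called in each alternative fit is not given beside them. These counts therefore describe the fits and are not read as particular to the members. For oviduct against ovary, pairing the tissues by animal as a replicate block gave 22 called members (23 without it), with Adamts14 lost, and the fit of all 32 libraries gave 7. With oviduct replicate 2 as the only oviduct library, which lowers power as well as ovary transcripts, 5 members were called for oviduct-origin GEMM tumours against oviduct (10 with all 3), 4 for Ad-BPR (10), 5 for Pax8-BPR (10) and 4 for Ovgp1-BPR (11). Fits of only the groups compared called 27 members for Ad-BPR and 17 for Pax8-BPR against oviduct and 10 of 19 for Ovgp1-BPR against Pax8-BPR and Ad-BPR GEMM tumours. Limma on log2(TPM + 1) called 15 for Ad-BPR against oviduct and 1 for Pax8-BPR against Ad-BPR GEMM tumours (0 by edgeR). Leaving out 1 library at a time gave 6 to 12 members for oviduct-origin, 2 to 11 for Ad-BPR, 8 to 12 for Pax8-BPR and 7 to 15 for Ovgp1-BPR GEMM tumours against oviduct, 6 to 13 for OSE-BPR GEMM tumours against ovary, 24 to 29 and 8 to 19 for OSE-BPR against oviduct-origin allografts and GEMM tumours, and 5 to 15 and 10 to 18 for Ovgp1-BPR against Pax8-BPR and Ad-BPR allografts and GEMM tumours. The log2 fold change of Mmp2 in Ovgp1-BPR GEMM tumours against oviduct was 0.15 (adjusted p = 0.897), and it ranged from -1.996 (adjusted p = 0.0457, without Ovgp1-BPR GEMM replicate 3) to 0.69 (without replicate 1). The split of higher and lower calls moved for OSE-BPR GEMM tumours against ovary (5 and 6 by DESeq2 and by limma, against 3 and 6), for oviduct-origin GEMM tumours against oviduct (9 and 5 by DESeq2, against 5 and 5) and for Ovgp1-BPR GEMM tumours against oviduct (3 and 6 by limma, against 5 and 6), while RLE factors left every split as it was. By limma the median of all genes was -0.105 for oviduct against ovary (0.0169 by edgeR). It was 0.106 for OSE-BPR against oviduct-origin allografts (0.0407 by edgeR). For Ovgp1-BPR against Pax8-BPR and Ad-BPR it was 0.127 in GEMM tumours (-0.00598 by edgeR) and 0.14 in allografts (0.0199 by edgeR). Fits without oviduct replicates 1 and 3 were added after the data were seen. Causes of these shifts were not tested. Of single members under all alternatives, 7270 values kept their direction and side of the threshold, 311 fell below it, 128 passed it and 1 changed sign. Depth limits members with a few counts, among them Mmp27, Mmp25, Adamts13 and Adamts18, and groups of 2 to 5 libraries limit all of them.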
